A study of Mus musculus with 15 samples.

Results

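Tibialis anterior (TA) muscle that had regenerated for 14 days after injury was compared with TA muscle at day 7, gene by gene. The injury was an injection of cardiotoxin (CTX), a snake venom toxin that destroys muscle fibers and leaves their stem cells in place. The later group is called the Maturation Stage and the earlier group the Differentiation Stage. Each had 4 RNA sequencing libraries, so that 8 of the 15 libraries of the study entered, and they are written M1 to M4 and D1 to D4. All mice were C57BL/6 males that entered at 8 weeks of age. Both groups received 50 µL of CTX at 0.1 mg/mL into the TA of one hind limb, in phosphate-buffered saline with the anti-inflammatory drug meloxicam, and were given deuterated water up to collection, for a day longer in the Maturation Stage than in the Differentiation Stage. All mice were killed on the same day of the protocol, so the groups differed in the day of injection. The labels count each library as 1 subject and name the material bulk tissue, while the RNA was taken from frozen, purified muscle fibers, to which other cells stay attached. Expression was given in FPKM, the fragments of a gene divided by the length of its exons and by the fragments of the library. A gene was tested where at least 3 of the 8 libraries reached 0.5 FPKM, which held for 13227 of 56748 identifiers. Levels at day 4 (Proliferation Stage, 4 libraries) and in Uninjected mice (3 libraries) are given in places for orientation, as means or ranges, and were not tested. Where a pair of ranges is given, each range runs from the lowest to the highest library, day 7 first.

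Regenerating muscle follows a set order. Satellite cells, the stem cells beneath the basal lamina, divide, express the myogenic factors Myod1 and Myog, fuse into thin fibers with embryonic and neonatal myosins, and then exchange these proteins for adult ones as nerves reconnect. Macrophages that clear debris and fibroblasts that lay down a temporary matrix leave or fall silent as the fibers grow.

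The libraries were shallow and unequal in depth. Approximate counts recovered from the FPKM values were 1471343 to 6293133 fragments in genes in the Differentiation Stage and 1479310 to 5544584 in the Maturation Stage. Among the Differentiation Stage libraries, D1 stood apart. On the first principal component of all tested genes, which held 53.9% of the variance, D1 lay at -0.02, against -62.7, -30.9 and -74.8 for D2, D3 and D4 and 31.5 to 55.2 for the Maturation Stage. D1 was also the library with the lowest fragment count of its group. Its label was kept. Whether it was mislabelled or its muscle less injured was not tested and cannot be settled with these files. For many lists whose counts change without it, the count without D1 is therefore given too. The fiber genes Acta1 (α-actin, 17414–33058 and 32123–34433 FPKM at days 7 and 14), Ckm (muscle creatine kinase, 1155–2903 and 3286–4601 FPKM) and Mylpf (fast regulatory myosin light chain, 7958–15946 and 11506–16062 FPKM) marked all 8 libraries as muscle. Of the markers of other cells, Pecam1 of endothelium lay at 21.7–32.4 and 14.7–25.3 FPKM and Lyz2 of macrophages at 35.8–529 and 11.01–26.2 FPKM at days 7 and 14, while Adipoq, Plin1, Alas2, Cd3e and Cd79a did not reach the filter. In bulk RNA, fewer cells of a type cannot be told apart from less RNA per cell.

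Of the 13227 genes tested, 1286 (9.72%) were higher and 1587 (12.0%) were lower in the Maturation Stage, by limma on log2(FPKM + 0.5) with Benjamini-Hochberg adjusted p below 0.05. A fold change on this scale understates the change of genes near 0. Changes of at least 2-fold were found for 576 of the higher and 1004 of the lower genes, so large changes were more often falls. The higher count was 656 without D2, 811 without D4 and 840 without M4, and the lower count was 722 without D2, 879 without D4, 1048 without M1 and 1001 without M2. Without D1 both counts rose, to 1838 higher and 2255 lower. FPKM totals differed between libraries, from 260942 to 430860 in the Differentiation Stage and from 431734 to 483921 in the Maturation Stage. Scaling every library to an equal total moved the median log2 fold change over all genes from -0.06 to -0.46 and the split to 460 higher and 3333 lower. Scaled to equal totals without the mitochondrially encoded genes, the median was -0.38 and the split 614 and 2809. Of the called genes named below, 0 changed sign under either scaling, and medians of lists that did are given below with both values.

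**Figure D1:**
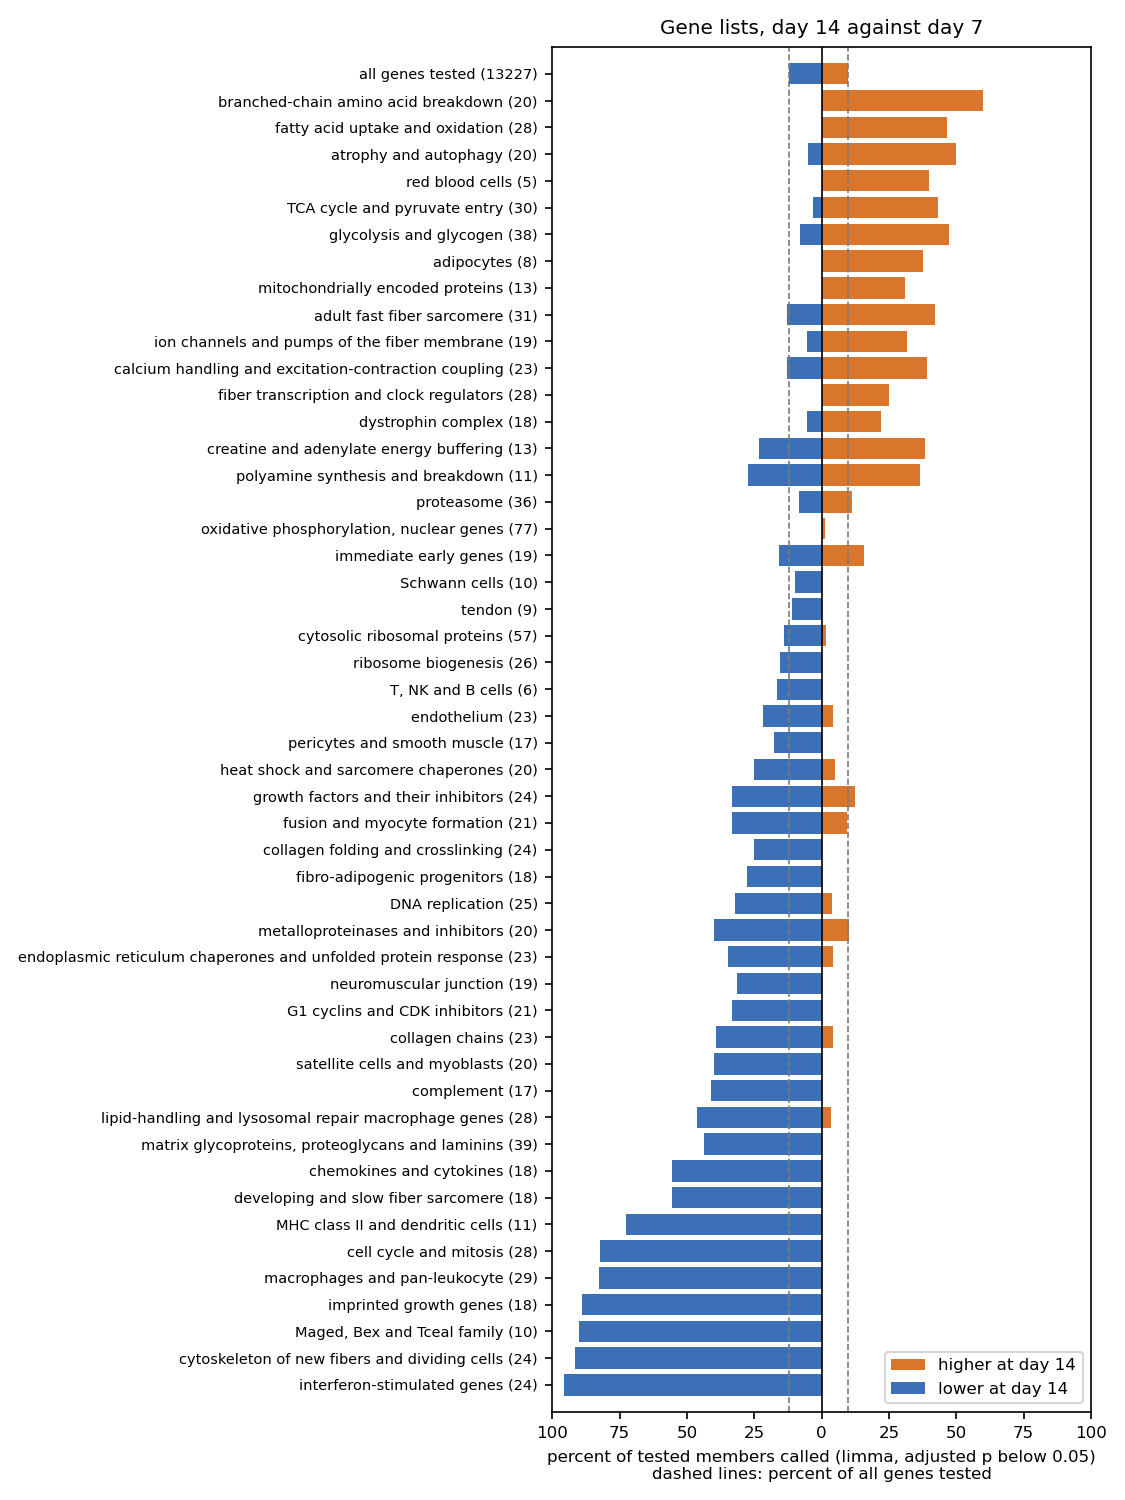
Percent of the tested members of each gene list called higher (right, orange) or lower (left, blue) at day 14 than at day 7, with the number tested in parentheses and the percent of all genes tested at the top. The interferon, cytoskeleton, Maged/Bex/Tceal, imprinted, macrophage and cell cycle lists had the highest shares of lower members, and the branched-chain amino acid, atrophy, glycolysis and fatty acid lists the highest shares of higher members.

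The early fiber isoforms led the falls, with Myh8, Myh3 and Tnni1 the largest 3 among abundant genes. Of 18 tested genes of the developing and slow fiber sarcomere, 10 were lower and 0 higher, with a median log2 fold change of -2.02 against -0.06 over all genes. Myh8, the neonatal myosin heavy chain, measured 22.8, 108, 96.6 and 187 FPKM in D1 to D4 and 1.48, 0.738, 4.14 and 2.35 FPKM in M1 to M4. Every Maturation Stage library was below every Differentiation Stage library (log2 fold change -5.11 ± 0.61 (SE), adjusted p = 0.00202, exact permutation p = 0.0286), and 0.0286 is the smallest p that this exact test of 4 against 4 libraries can give. Myh3, the embryonic heavy chain, stood at 6.79, 87.0, 60.1 and 197 FPKM in D1 to D4 and 0.670, 1.08, 1.77 and 1.72 FPKM in M1 to M4. The groups did not overlap, D1 was lowest at day 7 (log2 fold change -4.91 ± 0.83 (SE), adjusted p = 0.00655, exact permutation p = 0.0286), and the Uninjected mean was 0.401 FPKM. Tnni1, the slow troponin I that fibers make before the fast form, gave 24.1, 55.2, 29.5 and 112 FPKM in D1 to D4 and 0.644, 1.61, 2.88 and 2.13 FPKM in M1 to M4. D1 and D3 held less of it than D2 and D4, and all 4 exceeded the Maturation Stage (log2 fold change -4.43 ± 0.49 (SE), adjusted p = 0.00168, exact permutation p = 0.0286). Slow troponin T and the embryonic light chain fell with it: Tnnt1 from 12.2–84.0 to 1.58–5.08 FPKM (log2 fold change -3.03, adjusted p = 0.00814) and Myl4 from 10.9–95.3 to 2.19–7.20 FPKM (log2 fold change -2.84, adjusted p = 0.0137). The embryonic light chain Myl6b (log2 fold change -2.06, adjusted p = 0.013) and the cardiac troponin T gene Tnnt2 (log2 fold change -2.39, adjusted p = 0.0336) were lower too. The call of Tnnt2 (any but D1 and D3, 0.0935) ended without the libraries in parentheses, which also give the highest adjusted p.

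Csrp3 and Ankrd1, of the Z-disc and I-band, fell as well. Csrp3, the muscle LIM protein, had 44.1, 38.4, 78.2 and 57.2 FPKM in D1 to D4 and 0.434, 7.05, 6.61 and 4.85 FPKM in M1 to M4. All of day 14 lay below all of day 7 (log2 fold change -3.71 ± 0.61 (SE), adjusted p = 0.00579, exact permutation p = 0.0286). Ankrd1, a titin-binding ankyrin repeat protein induced by load and injury, fell from 31.8–43.5 to 2.26–15.0 FPKM (log2 fold change -2.36, adjusted p = 0.00866). Actc1, the cardiac α-actin of immature fibers, did not pass: it measured 2583, 2338, 2309 and 2124 FPKM in D1 to D4 and 3167, 902, 2470.2 and 1329.8 FPKM in M1 to M4, with 1 Maturation Stage library above all others (log2 fold change -0.41, adjusted p = 0.457). Mybpc1 (slow myosin binding protein C, adjusted p = 0.421) and Mybph (adjusted p = 0.582) did not pass either, and Myh7, the slow heavy chain, did not reach the filter.

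The adult fast sarcomere rose in part. Of its 31 tested genes 13 were higher (6 to 8 without any of D2, D3, D4, M1, M2, M3 and M4, 21 without D1) and 4 lower (1 without any of D3 and M2, 2 without M3), with a median log2 fold change of 0.74. The higher share was 41.94% against 9.72% of all genes, and the lower share of 12.90% was near their 12.0%. With equal FPKM totals 12 were higher and 5 lower at a median of 0.23. With quantile normalization 9 were higher and 5 lower at a median of 0.25. Mylk4, a kinase of the myosin light chain kinase family, had 24.4, 6.80, 11.9 and 6.53 FPKM in D1 to D4 and 162, 167, 134 and 102 FPKM in M1 to M4. It was higher in all Maturation Stage libraries (log2 fold change 3.63 ± 0.38 (SE), adjusted p = 0.00137, exact permutation p = 0.0286). Tcap, the telethonin that caps titin at the Z-disc, had 1150.1, 565, 1031 and 810.0 FPKM in D1 to D4 and 4015, 3237, 4380.3 and 3688 FPKM in M1 to M4. The day 7 values all lay below the lowest value at day 14 (log2 fold change 2.15 ± 0.26 (SE), adjusted p = 0.00202, exact permutation p = 0.0286). Smtnl2, a smoothelin-like protein (log2 fold change 1.99, adjusted p = 0.00724), Mylk2, the skeletal myosin light chain kinase (log2 fold change 1.59, adjusted p = 0.0036), Actn3, the fast α-actinin (log2 fold change 1.46, adjusted p = 0.0123), and Myom1, an M-band protein (log2 fold change 1.00, adjusted p = 0.0138), rose. Among genes of the contractile apparatus that fell, Myom3, the M-band protein of slow and intermediate fibers, dropped from 17.0–31.7 to 1.06–5.17 FPKM (log2 fold change -2.56, adjusted p = 0.005) and Actn2, the α-actinin of all fiber types, from 525–857 to 134–371 FPKM (log2 fold change -1.32, adjusted p = 0.0227). Myoz3 (log2 fold change 1.39, adjusted p = 0.0188), Myoz1 (log2 fold change 1.07, adjusted p = 0.0347), calsarcins of the Z-disc, and Tnni2, fast troponin I (log2 fold change 1.00, adjusted p = 0.0405), were called higher. Ttn (titin, 29.8–66.5 and 54.8–78.7 FPKM, adjusted p = 0.165), Des (desmin, 1070.4–1754 and 967–1214 FPKM, adjusted p = 0.411) and Acta1 (adjusted p = 0.207) did not pass. The fast troponin C gene Tnnc2 was near 0 in all 8 libraries (0.519–2.53 and 0–0.491 FPKM, log2 fold change -1.52, adjusted p = 0.0271), unlike the other fast troponins. Only its day 7 values reached the 0.5 FPKM of the filter. The study measured turnover of skeletal troponin C protein in every group, so these values may miss reads of the gene. That was not tested, and its fall cannot be relied on. Summed over the list, values were 98876, 54721, 76704 and 49605 FPKM in D1 to D4 and 115090.0, 100270.0, 103140.0 and 103040.0 FPKM in M1 to M4. D1 lay just below the later group, and the counts without D1 are given above. Calls that ended without 1 library were those of Actn2 (D3 and M2, 0.0587), Myoz3 (D2 and M1, 0.0554), Myoz1 (any but D1, 0.0896), Tnni2 (any but D1, 0.104) and Tnnc2 (D3, M1, M2 and M3, 0.0691), with those libraries and the highest adjusted p in parentheses. Ttn (D1, 0.0351) and Acta1 (D1, 0.0397) passed once the library named was left out, with the lowest adjusted p beside it.

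Of the adult heavy chains, Myh4 rose and Myh1 fell. Myh4, the IIb myosin of the fastest fibers, measured 6952, 2577, 3918 and 1807 FPKM in D1 to D4 and 9959.9, 8742, 8151 and 6741 FPKM in M1 to M4. M4 was below D1, and the other 3 Maturation Stage libraries were above all of day 7 (log2 fold change 1.31 ± 0.39 (SE), adjusted p = 0.0417, exact permutation p = 0.0571). Myh1, the IIx myosin, stood at 2063, 1997, 3013 and 1771 FPKM in D1 to D4 and 231, 967, 908 and 1366 FPKM in M1 to M4. All 4 Maturation Stage libraries were below the Differentiation Stage, M1 the lowest (log2 fold change -1.58 ± 0.50 (SE), adjusted p = 0.0485, exact permutation p = 0.0286). Myh2, the IIa myosin, overlapped, with 24.0, 71.9, 144 and 96.8 FPKM in D1 to D4 and 7.55, 68.1, 74.9 and 77.8 FPKM in M1 to M4 (log2 fold change -0.73, adjusted p = 0.531). The smooth muscle heavy chain Myh11 had 4.01–5.68 and 4.48–7.58 FPKM at days 7 and 14 (adjusted p = 0.534). Uninjected means were 9304 FPKM for Myh4, 1299 for Myh1, 73.2 for Myh2 and 0.757 for Myh8. Of the non-muscle heavy chains of the cell cortex, Myh9 (11.9–21.6 and 5.87–10.2 FPKM, log2 fold change -0.9996, adjusted p = 0.0145) and Myh10 (2.26–4.72 and 0.610–2.23 FPKM, log2 fold change -1.12, adjusted p = 0.0347) fell and Myh14 (1.48–3.61 and 3.91–11.6 FPKM, log2 fold change 1.17, adjusted p = 0.0332) rose. With 1 library left out, the call was lost for Myh4 (any but D1, 0.102), Myh1 (any but M1 and M4, 0.111), Myh10 (D2, D3, D4, M1 and M3, 0.0907) and Myh14 (any but D1 and M3, 0.0868), libraries and highest adjusted p in parentheses.

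**Figure D2:**
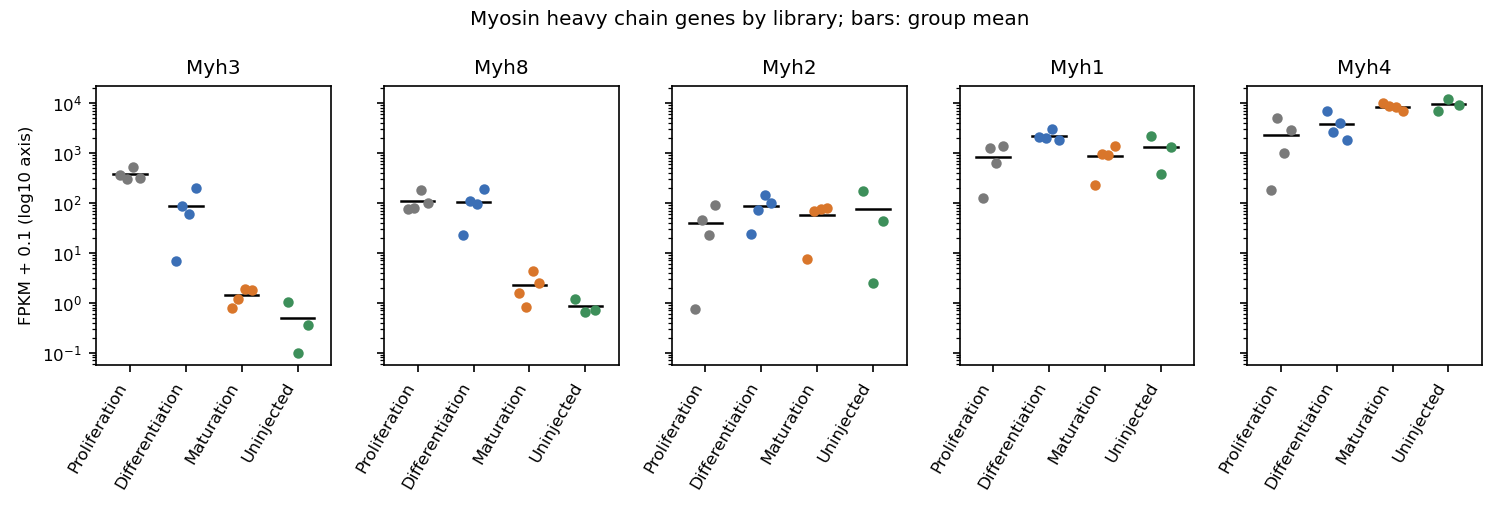
FPKM of the embryonic (Myh3), neonatal (Myh8), IIa (Myh2), IIx (Myh1) and IIb (Myh4) myosin heavy chains in every library of the 4 groups on a log10 axis of FPKM + 0.1, with short bars at the group means. Myh3 and Myh8 separate days 7 and 14 without overlap, while Myh2 overlaps.

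Of the myogenic factors Myog, Myod1 and Myf5 fell, and Myf6 did not pass. Myog, the factor that commits myoblasts to differentiation, had 25.7, 65.1, 44.8 and 153 FPKM in D1 to D4 and 4.65, 4.85, 9.50 and 7.62 FPKM in M1 to M4. Its lowest day 7 value was above its highest day 14 value (log2 fold change -3.09 ± 0.48 (SE), adjusted p = 0.005, exact permutation p = 0.0286). Myod1, the factor that fixes myogenic identity, measured 39.1, 37.7, 27.1 and 38.4 FPKM in D1 to D4 and 14.6, 21.8, 13.6 and 22.6 FPKM in M1 to M4. The groups were closer but did not overlap (log2 fold change -0.97 ± 0.21 (SE), adjusted p = 0.0134, exact permutation p = 0.0286), and the Uninjected mean was 17.2 FPKM. Myf5, the earliest of the family, went from 1.29–2.59 to 0.188–0.835 FPKM (log2 fold change -1.22, adjusted p = 0.0143). Myf6, which fibers keep, did not pass, with 77.9–103 FPKM in the Differentiation Stage and 45.3–118 FPKM in the Maturation Stage (log2 fold change -0.20, adjusted p = 0.629). Pax7, the satellite cell factor, was low and fell from 0.861–1.63 to 0.124–0.791 FPKM (log2 fold change -1.03, adjusted p = 0.0293). Of 20 tested satellite cell and myoblast genes 8 were lower (4 without D2, 14 without D1) and 0 higher (median -0.77), among them Fgfr4 (log2 fold change -2.01, adjusted p = 0.0201), a receptor of fibroblast growth factors, Vcam1, an adhesion molecule (log2 fold change -1.66, adjusted p = 0.00807), and Cxcr4, the receptor of Cxcl12 (log2 fold change -1.67, adjusted p = 0.0493). Day 7 alone carried 4 of the 20 genes past the filter. Cdh15, the M-cadherin of the satellite cell niche, did not pass (adjusted p = 0.123). Lost with 1 library left out (libraries and highest adjusted p given) were the calls of Pax7 (D2, D4, M2 and M3, 0.0835), Fgfr4 (D2, 0.0532) and Cxcr4 (D2, D4, M1, M2 and M4, 0.123).

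Of 21 fusion and myocyte genes 7 were lower (2 to 4 without any of D2, D3, D4, M1, M2 and M4, 13 without D1) and 2 higher (0 without D2, 1 without any of D3, D4, M1, M2 and M3), with a median of -0.68. The lower share was 33.33% against 12.0% of all genes, and the higher share of 9.52% was near their 9.72%. Of the 21 genes 2 reached the filter through day 7 alone and 1 through day 14 alone. Mymk, or myomaker, the membrane protein that myoblasts need to fuse, stood at 6.24, 29.4, 10.6 and 66.2 FPKM in D1 to D4 and 0, 1.92, 3.30 and 1.30 FPKM in M1 to M4. It was listed at 0 in M1, and the groups did not overlap (log2 fold change -3.53 ± 0.78 (SE), adjusted p = 0.0145, exact permutation p = 0.0286). Mymx, or myomixer, its partner, had 1.31, 8.01, 3.56 and 19.8 FPKM in D1 to D4 and 0, 0.705, 2.62 and 0.573 FPKM in M1 to M4. Its M3 value lay above D1, and it did not pass (log2 fold change -2.33, adjusted p = 0.052). At day 4 the means had been 170.0 FPKM for Mymk and 33.8 FPKM for Mymx. Ckb, the brain creatine kinase of immature muscle, fell (log2 fold change -1.70, adjusted p = 0.017), as did Ptgfrn (log2 fold change -1.38, adjusted p = 0.0264) and Myof, the myoferlin of fusing membranes (log2 fold change -1.35, adjusted p = 0.0451). Tmem182, a muscle membrane protein described in mice as a brake on fusion, rose from 49.1–87.6 to 109.9–127 FPKM (log2 fold change 0.90, adjusted p = 0.0181). Mef2c, a transcription factor of differentiating muscle (adjusted p = 0.658), and Cd81, a tetraspanin (adjusted p = 0.0689), did not pass. Leaving out 1 library ended the call of Ckb (D2, 0.0508), Ptgfrn (any but D1 and M3, 0.0757), Myof (any but D1 and D3, 0.126) and Tmem182 (D2, 0.0513), with the libraries and the highest adjusted p in parentheses. Leaving out the library in parentheses gave a call for Mymx (D1 and M3, 0.0121) and Cd81 (D1, 0.0156), here with the lowest adjusted p.

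At the neuromuscular junction the fetal receptor subunit fell, and the adult subunit did not pass the test. Of 19 tested genes 6 were lower and 0 higher (median -0.49). Day 7 alone carried 2 of the 19 past the filter. Chrng, the γ subunit of the fetal acetylcholine receptor, had 1.29, 3.18, 1.30 and 8.78 FPKM in D1 to D4 and 0, 0, 0.0922 and 0.0472 FPKM in M1 to M4. It was near or at 0 in the Maturation Stage and above 1 FPKM in every library of day 7 (log2 fold change -2.60 ± 0.48 (SE), adjusted p = 0.00814, exact permutation p = 0.0286). Chrna1, the α1 subunit shared by both receptor forms, measured 16.6, 23.1, 17.4 and 34.7 FPKM in D1 to D4 and 5.15, 3.80, 6.39 and 4.07 FPKM in M1 to M4. The highest day 14 value was below the lowest day 7 value (log2 fold change -2.09 ± 0.25 (SE), adjusted p = 0.00197, exact permutation p = 0.0286). Chrnd (δ, log2 fold change -2.26, adjusted p = 0.00802) and Chrnb1 (β1, log2 fold change -1.02, adjusted p = 0.00753) fell without overlap too. Chrne, the ε subunit that replaces γ in the adult receptor, stood at 20.7, 5.34, 14.2 and 7.37 FPKM in D1 to D4 and 29.5, 4.71, 11.4 and 10.1 FPKM in M1 to M4. M1 and D1 were the highest libraries and the groups overlapped throughout (log2 fold change 0.11, adjusted p = 0.896). Ncam1, an adhesion molecule that denervated and growing fibers spread over their surface, fell from 3.90–8.48 to 0.418–0.886 FPKM (log2 fold change -2.43, adjusted p = 0.00131), and Agrn, or agrin, which clusters receptors, from 5.88–8.06 to 2.56–3.50 FPKM (log2 fold change -1.04, adjusted p = 0.00452). Rapsn (adjusted p = 0.818), the receptor anchor, Ache (adjusted p = 0.956), acetylcholinesterase, and Lamb2 (adjusted p = 0.221), the synaptic laminin chain, did not pass. Chrna10, the α10 subunit known from hair cells, was at 0.0869–0.530 and 0.551–1.76 FPKM at days 7 and 14 and did not pass (adjusted p = 0.0692).

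**Figure D3:**
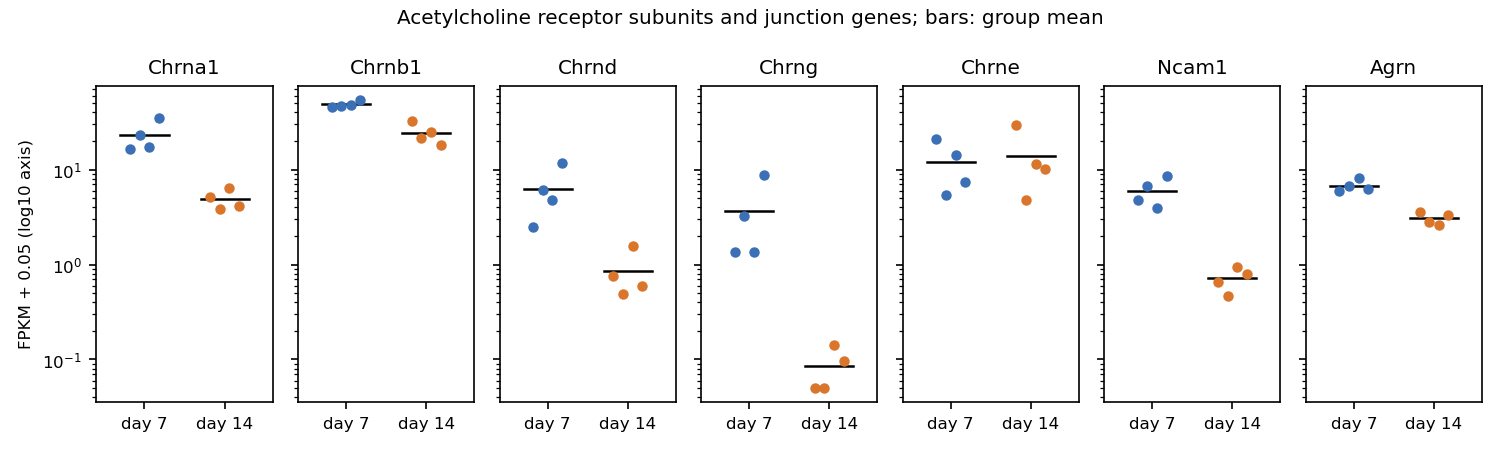
FPKM of acetylcholine receptor subunits Chrna1, Chrnb1, Chrnd, Chrng and Chrne and of Ncam1 and Agrn in each library at day 7 (blue) and day 14 (orange), on a log10 axis of FPKM + 0.05, with bars at the group means. The γ subunit Chrng separates the groups widely and the ε subunit Chrne overlaps.

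Receptor subunit promoters are shown because their genes moved apart. E-boxes of the form CAGCTG, which myogenic factors such as Myod1 and Myog can bind, were searched on both strands in windows of 300 bases around gene starts (RefSeq, build GRCm38.p6), of which 16.3% (5355 of 32851) held one. Of the 12 tested junction genes that had a window, 5 held it, namely Chrna1, Chrne, Chrng, Etv5 and Musk. The share counts windows and the tally counts genes, and some of these genes, such as Etv5, had 2 windows in which to match. The windows of Chrng (chr1:87205561-87205860, plus strand), Chrna1 (chr2:73580289-73580588, minus strand) and Chrne (chr11:70619145-70619444, minus strand) are printed with each match in capitals.
Chrng: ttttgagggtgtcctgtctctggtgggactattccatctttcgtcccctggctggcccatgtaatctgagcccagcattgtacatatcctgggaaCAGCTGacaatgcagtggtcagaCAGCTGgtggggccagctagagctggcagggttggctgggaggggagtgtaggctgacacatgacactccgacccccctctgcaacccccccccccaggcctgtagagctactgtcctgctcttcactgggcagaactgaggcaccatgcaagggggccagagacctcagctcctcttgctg
Chrna1: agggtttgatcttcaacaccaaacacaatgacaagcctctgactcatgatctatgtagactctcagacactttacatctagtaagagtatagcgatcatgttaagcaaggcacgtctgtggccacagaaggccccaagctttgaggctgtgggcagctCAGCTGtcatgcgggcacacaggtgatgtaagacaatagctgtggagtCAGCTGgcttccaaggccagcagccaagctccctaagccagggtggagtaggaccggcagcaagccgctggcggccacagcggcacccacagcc
Chrne: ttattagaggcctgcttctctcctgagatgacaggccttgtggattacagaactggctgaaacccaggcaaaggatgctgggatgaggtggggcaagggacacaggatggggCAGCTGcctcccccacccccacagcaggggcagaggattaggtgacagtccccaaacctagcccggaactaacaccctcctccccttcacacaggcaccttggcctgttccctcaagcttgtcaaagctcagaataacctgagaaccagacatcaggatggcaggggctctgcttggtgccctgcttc
Chrng and Chrna1 held 2 matches each and Chrne held 1. A match describes the letters only and was not tested as a binding site.

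Genes of excitation and calcium handling rose in part. Of 23 genes of calcium handling and excitation-contraction coupling 9 were higher (2 to 5 without any of D2, D3, D4, M1, M2, M3 and M4, 14 without D1) and 3 lower (1 without any of D2, D4, M2 and M4), with a median of 0.66. With equal FPKM totals 4 were higher and 5 lower. The higher share in the main fit was 39.13% against 9.72% of all genes, and the lower share of 13.04% was near their 12.0%. Mrln, or myoregulin, a small inhibitor of the calcium pump, had 14.3, 7.94, 8.40 and 7.04 FPKM in D1 to D4 and 31.4, 26.4, 27.6 and 24.95 FPKM in M1 to M4. The groups were well apart (log2 fold change 1.55 ± 0.21 (SE), adjusted p = 0.0032, exact permutation p = 0.0286). Ryr1, the calcium release channel of the sarcoplasmic reticulum, rose from 45.4–100.8 to 141–207 FPKM (log2 fold change 1.28, adjusted p = 0.00989). Cacna1s, the voltage sensor (log2 fold change 1.08, adjusted p = 0.0289), Atp2a1, the fast calcium pump (log2 fold change 1.16, adjusted p = 0.0242), and Trdn, or triadin (log2 fold change 1.05, adjusted p = 0.0266), were also higher. Casq2, the cardiac and slow calsequestrin, moved the other way, with 56.4, 103, 107 and 139 FPKM in D1 to D4 and 7.84, 20.6, 18.2 and 16.1 FPKM in M1 to M4. The groups did not overlap (log2 fold change -2.66 ± 0.34 (SE), adjusted p = 0.00264, exact permutation p = 0.0286), and the slow pump Atp2a2 (log2 fold change -1.15, adjusted p = 0.0234) and its inhibitor Sln, or sarcolipin (log2 fold change -1.69, adjusted p = 0.0477), were lower as well. Casq1, the fast calsequestrin (adjusted p = 0.175), and Pvalb, the calcium buffer parvalbumin (4847–16551 and 14871–26518 FPKM, adjusted p = 0.0565), did not pass. The call of Cacna1s (D2, M2, M3 and M4, 0.0714), Atp2a1 (D2, D4, M1, M2 and M3, 0.0646), Trdn (any but D1 and M2, 0.0736), Atp2a2 (D2, D4, M1, M2 and M4, 0.0642) and Sln (any but D1 and M1, 0.121) ended without the libraries in parentheses, which also give the highest adjusted p. Without the library named, Casq1 (D1, 0.0354) and Pvalb (D1, 0.00441) passed, at the lowest adjusted p given beside it.

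Of 19 channels and pumps of the fiber membrane 6 rose and 1 fell (2 without D1), against 5 and 4 with equal FPKM totals. Scn4b, a β subunit of the sodium channel, measured 37.1, 13.0, 31.1 and 11.9 FPKM in D1 to D4 and 106, 148, 105 and 108 FPKM in M1 to M4. D1 and D3 were the higher libraries at day 7 and still below the lowest at day 14 (log2 fold change 2.45 ± 0.36 (SE), adjusted p = 0.00428, exact permutation p = 0.0286). Scn4a, the sodium channel of the muscle action potential (log2 fold change 1.30, adjusted p = 0.0176), Kcnj11, the pore of the ATP-sensitive potassium channel (log2 fold change 1.33, adjusted p = 0.00906), and Kcna7 (log2 fold change 1.34, adjusted p = 0.0222) rose alongside. Of the potassium channel genes outside the list, Kcng4 (1.75–9.03 and 24.8–40.7 FPKM at days 7 and 14, log2 fold change 2.92, adjusted p = 0.00431) and Kcnc4 (4.11–12.5 and 33.1–69.1 FPKM, log2 fold change 2.40, adjusted p = 0.00407) were among the 15 largest rises of abundant genes, and Atp1b4, a perinatal muscle protein related to sodium pump β subunits, was among the 15 largest falls (8.34–21.6 and 0.276–1.46 FPKM, log2 fold change -3.54, adjusted p = 0.00137). Calls that ended without 1 library were those of Kcna7 (D2, M2 and M4, 0.0633), with those libraries and the highest adjusted p in parentheses.

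The dystrophin complex, which ties the fiber to its basal lamina, had 22.22% of its members higher, against 9.72% of all genes. Its share of lower members was 5.56%, against 12.0% of all genes. Its median over 18 tested genes was 0.17, a value that became -0.32 with equal FPKM totals, and 4 were higher and 1 lower (0 without any of D2 and M4, 2 without D1). Nos1, the nitric oxide synthase bound to the complex, had 2.60, 1.87, 3.68 and 1.97 FPKM in D1 to D4 and 4.78, 13.7, 6.16 and 8.34 FPKM in M1 to M4. M2 was highest, and no day 14 value reached down to day 7 (log2 fold change 1.46 ± 0.31 (SE), adjusted p = 0.0124, exact permutation p = 0.0286). Sgca, or α-sarcoglycan (log2 fold change 1.12, adjusted p = 0.00967), was higher, and Sntb1, or β1-syntrophin, was lower (log2 fold change -0.82, adjusted p = 0.0194). Dmd, dystrophin itself, stood at 1.94–3.45 and 3.15–5.33 FPKM at days 7 and 14 and did not pass (log2 fold change 0.48, adjusted p = 0.124), nor did Dag1, dystroglycan (adjusted p = 0.164). With 1 library left out, the call was lost for Sntb1 (D2 and M4, 0.0577), libraries and highest adjusted p in parentheses.

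The largest rise among abundant genes was that of Odf3l2, named for an outer dense fiber protein of sperm tails. It had 0, 0, 0.279 and 0 FPKM in D1 to D4 and 57.6, 18.6, 19.7 and 14.3 FPKM in M1 to M4. It was listed at 0 in 3 of 4 libraries of day 7 and was present in all of day 14, most in M1 (log2 fold change 5.42 ± 0.39 (SE), adjusted p = 0.000555, exact permutation p = 0.0286), and the Uninjected mean was 29.9 FPKM. Arrdc2, an arrestin-domain protein, went from 3.54–8.48 to 52.0–115 FPKM (log2 fold change 3.29, adjusted p = 0.0013). The others of the 15 that no list below describes were Ppp1r1a, an inhibitor of protein phosphatase 1 (0–4.64 and 7.64–36.1 FPKM, log2 fold change 3.42, adjusted p = 0.0135), Tspan8, a tetraspanin (0–6.33 and 14.5–20.97 FPKM, log2 fold change 3.3951, adjusted p = 0.00919), Aldh1a1, a retinal dehydrogenase (2.13–10.8 and 24.2–33.0 FPKM, log2 fold change 2.46, adjusted p = 0.00653), and the unnamed transcripts B230312C02Rik (3.17–13.8 and 41.7–87.8 FPKM, log2 fold change 3.21, adjusted p = 0.00296) and 2310065F04Rik (1.65–10.6 and 17.8–38.8 FPKM, log2 fold change 2.60, adjusted p = 0.00727).

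Polyamine genes split by enzyme. Amd1, S-adenosylmethionine decarboxylase, which supplies the aminopropyl group of spermidine and spermine, had 35.7, 6.77, 11.4 and 6.33 FPKM in D1 to D4 and 119.7, 259.6, 83.9 and 117 FPKM in M1 to M4. D1 was well above D2 to D4 and still below day 14 (log2 fold change 3.45 ± 0.53 (SE), adjusted p = 0.005, exact permutation p = 0.0286). Smox, spermine oxidase, which turns spermine back into spermidine, went from 10.6–34.1 to 85.4–153 FPKM, again with D1 the highest at day 7 (log2 fold change 2.85 ± 0.37 (SE), adjusted p = 0.00264, exact permutation p = 0.0286), and Sms, spermine synthase, rose (log2 fold change 0.71, adjusted p = 0.0217). Azin1, the antizyme inhibitor, fell from 12.2–21.1 to 5.37–8.10 FPKM (log2 fold change -1.26, adjusted p = 0.00495), as did Sat1, which acetylates polyamines for export (log2 fold change -1.19, adjusted p = 0.0208), and Srm, spermidine synthase (log2 fold change -1.26, adjusted p = 0.0357). Odc1, the first enzyme of the route, did not pass (16.2–28.5 and 22.7–37.8 FPKM, adjusted p = 0.176), nor did the antizymes Oaz1 (adjusted p = 0.429) and Oaz2 (adjusted p = 0.148). In all 4 of 11 were higher (2 without any of D2, M1, M2 and M4) and 3 lower (1 without any of D2 and M2), and the median of 0.45 became -0.06 with equal FPKM totals. Reads of Amd1 and its near-identical copy Amd2 (log2 fold change 1.39, adjusted p = 0.038) may have been split between them. Lost with 1 library left out (libraries and highest adjusted p given) were the calls of Sms (D2, M1, M2 and M4, 0.0636), Sat1 (D2, M2 and M4, 0.0609), Srm (D2, D3, D4, M1 and M2, 0.0925) and Amd2 (any but D1, 0.101). Oaz2 (D1, 0.0454) passed once the library named was left out, with the lowest adjusted p beside it.

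Genes of glycogen and glucose use were higher in many cases. Of 38 glycolysis and glycogen genes 18 were higher (11 without D2) and 3 lower (5 without D1), with a median of 0.96. With equal FPKM totals 15 were higher and 5 lower at a median of 0.45. With quantile normalization 15 were higher and 3 lower at a median of 0.37. Ppp1r3c, a glycogen-targeting subunit of protein phosphatase 1, had 114, 62.2, 111 and 64.8 FPKM in D1 to D4 and 651, 447, 672 and 356 FPKM in M1 to M4. Its lowest day 14 value was more than 3 times its highest value at day 7 (log2 fold change 2.60 ± 0.29 (SE), adjusted p = 0.00174, exact permutation p = 0.0286). Pygm, the muscle glycogen phosphorylase (743–1809 and 2643–3346 FPKM, log2 fold change 1.38, adjusted p = 0.0123), and the phosphorylase kinase subunits Phka1 (log2 fold change 1.74, adjusted p = 0.00753) and Phkg1 (log2 fold change 1.66, adjusted p = 0.00703) rose, as did Fbp2, the muscle fructose bisphosphatase (0.848–13.8 and 8.62–34.0 FPKM, log2 fold change 2.16, adjusted p = 0.0436). Glucose entry and commitment rose as well: Slc2a4, the insulin-responsive transporter GLUT4, from 46.6–92.4 to 148–167 FPKM (log2 fold change 1.26, adjusted p = 0.00941), Hk2 from 15.2–26.8 to 41.5–55.6 FPKM (log2 fold change 1.32, adjusted p = 0.00495) and Pfkm, muscle phosphofructokinase, from 409.8–786 to 1346–1434 FPKM (log2 fold change 1.30, adjusted p = 0.00814). Pfkfb1, which sets the level of a glycolytic activator, also rose (log2 fold change 2.35, adjusted p = 0.00682). Leaving out 1 library ended the call of Fbp2 (any but D1 and M3, 0.11), with the libraries and the highest adjusted p in parentheses.

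Hk1, Eno1 and Pfkp fell in the same list. Hk1, the general hexokinase, measured 6.16, 5.52, 5.91 and 6.91 FPKM in D1 to D4 and 2.58, 2.21, 2.02 and 2.02 FPKM in M1 to M4. Values within each group were tight and the groups lay apart (log2 fold change -1.29 ± 0.14 (SE), adjusted p = 0.00168, exact permutation p = 0.0286). Eno1, the non-muscle enolase, fell from 63.5–74.2 to 28.3–48.3 FPKM (log2 fold change -0.83, adjusted p = 0.0139), while Eno3, the muscle form, stood at 2402–5220.2 and 5099.5–5871 FPKM and did not pass (adjusted p = 0.0921). Pfkp, the platelet-type phosphofructokinase, fell (log2 fold change -0.67, adjusted p = 0.0499). Ldha (adjusted p = 0.083) and Pgam2 (adjusted p = 0.0513) did not pass. Gapdh read 5.05–7.84 FPKM at day 7 and 5.78–248 FPKM at day 14, levels far below those of its neighbours in the pathway and uneven among libraries, and its reads may be shared with pseudogenes (log2 fold change 2.20, adjusted p = 0.163). Glycolysis and glycogen genes summed to 23065, 10662, 16564 and 9875 FPKM in D1 to D4 and 31722, 27131, 29686 and 28650.0 FPKM in M1 to M4. D1 lay nearer to the Maturation Stage than the other Differentiation Stage libraries. The call of Pfkp (any but D1, 0.138) ended without the libraries in parentheses, which also give the highest adjusted p. Leaving out the library in parentheses gave a call for Eno3 (D1, 0.0119), Ldha (D1, 0.0108) and Pgam2 (D1, 0.00527), here with the lowest adjusted p.

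**Figure D4:**
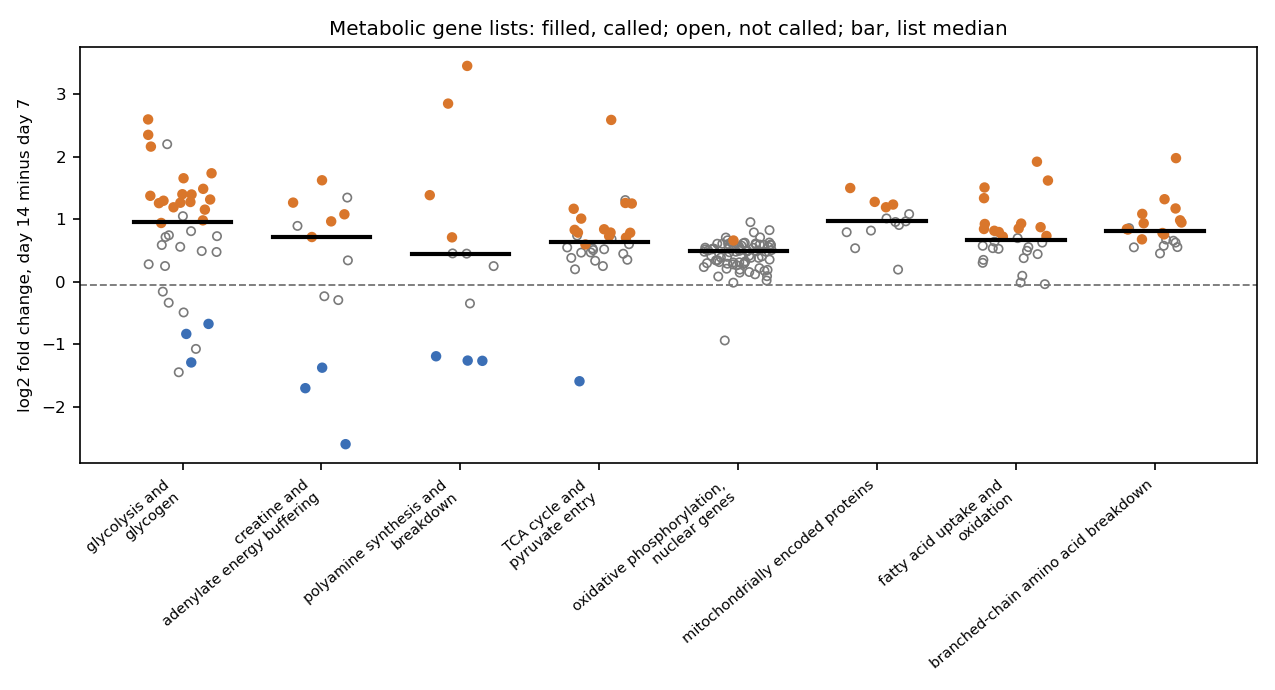
Limma log2 fold change, day 14 minus day 7, of every tested member of 8 metabolic gene lists, with called genes filled, others open, a black bar at each list's median and a dashed line at the median of all genes (-0.06). Medians ran from 0.45 for polyamine genes to 0.97 for mitochondrially encoded proteins, and only 1 of 77 nuclear oxidative phosphorylation genes was called.

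Genes of energy buffering changed in both directions. Of 13 creatine and adenylate genes 5 were higher (2 without any of D2, D4, M2, M3 and M4, 3 without any of D3 and M1) and 3 lower (1 without D2). With equal FPKM totals 3 were higher and 4 lower. Gatm, which makes the precursor of creatine, had 18.9, 12.6, 14.3 and 14.7 FPKM in D1 to D4 and 3.48, 1.93, 1.92 and 1.31 FPKM in M1 to M4. Day 14 lay below day 7 throughout (log2 fold change -2.60 ± 0.24 (SE), adjusted p = 0.00124, exact permutation p = 0.0286), and Gamt, the next enzyme, was lower too (log2 fold change -1.37, adjusted p = 0.036). Adssl1, the muscle adenylosuccinate synthase (132–280.2 and 509–602 FPKM, log2 fold change 1.62, adjusted p = 0.00564), and Ampd1, muscle AMP deaminase (92.8–208 and 292–379.8 FPKM, log2 fold change 1.27, adjusted p = 0.0113), rose, as did Ckm (log2 fold change 1.08, adjusted p = 0.0338) and Ak1, adenylate kinase (log2 fold change 0.97, adjusted p = 0.0406). Ckmt2, the mitochondrial creatine kinase, did not pass (adjusted p = 0.122). Calls that ended without 1 library were those of Gamt (any but M1 and M2, 0.0771), Ckm (any but D1, 0.0845) and Ak1 (any but D1, 0.104), with those libraries and the highest adjusted p in parentheses. Without the library named, Ckmt2 (D1, 0.0431) passed, at the lowest adjusted p given beside it.

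Lists of mitochondrial genes differed in how many members were called. Of 30 genes of the TCA cycle and pyruvate entry 13 were higher (5 to 7 without any of D2, D4, M1, M2, M3 and M4) and 1 lower (0 without any of D2, D3, D4, M2, M3 and M4) (median 0.64), and with equal FPKM totals 4 higher and 1 lower. Pdk4, which shuts pyruvate out of the cycle in fasting and exercise, had 71.0, 62.1, 97.8 and 57.6 FPKM in D1 to D4 and 563, 486, 529 and 230.3 FPKM in M1 to M4. M4 was the lowest of day 14 and more than 2 times the highest of day 7 (log2 fold change 2.59 ± 0.31 (SE), adjusted p = 0.0019, exact permutation p = 0.0286), and the Uninjected mean was 162 FPKM. Pdk2 (log2 fold change 1.25, adjusted p = 0.00809), Pcx, pyruvate carboxylase (log2 fold change 1.26, adjusted p = 0.0114), and Mpc2, of the mitochondrial pyruvate carrier (log2 fold change 1.17, adjusted p = 0.0147), also rose, and Pdk3 fell (log2 fold change -1.59, adjusted p = 0.0296). Mdh2, malate dehydrogenase, did not pass (adjusted p = 0.146). Of 77 nuclear genes of oxidative phosphorylation 1 was higher (0 without any of D2, D4, M1, M2, M3 and M4, 36 without D1) and 0 lower. Their median of 0.48 was above that of all genes but became -0.02 with equal FPKM totals. The called one was Ndufs1, a complex I subunit (25.8–43.1 and 47.9–58.3 FPKM, log2 fold change 0.67, adjusted p = 0.0403). Of the 13 mitochondrially encoded proteins 4 were called higher (0 to 1 without any of D2, D3, D4, M1, M2, M3 and M4, 10 without D1) and none lower, at a median of 0.97. mt-Co1 of complex IV measured 26155, 9408, 15974 and 14288 FPKM in D1 to D4 and 28969, 27940.1, 23073 and 37283 FPKM in M1 to M4. D1 lay within the range of day 14, and the gene did not pass (log2 fold change 0.91, adjusted p = 0.0862). mt-Nd2 (log2 fold change 1.28, adjusted p = 0.0411) and mt-Co3 (log2 fold change 1.4997, adjusted p = 0.0485) were called. With 1 library left out, the call was lost for Pdk3 (any but D1 and M1, 0.0803), Ndufs1 (any but D1 and D3, 0.106), mt-Nd2 (any but D1, 0.104) and mt-Co3 (any but D1 and M3, 0.113), libraries and highest adjusted p in parentheses. mt-Co1 (D1, 0.0108) and Mdh2 (D1, 0.0391) passed once the library named was left out, with the lowest adjusted p beside it.

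Of the genes of fat and branched-chain amino acid breakdown, some were called higher and none lower. Of 28 genes of fatty acid uptake and oxidation 13 were higher (6 without D2, 7 without any of D4, M2, M3 and M4) and 0 lower (median 0.67), and of 20 genes of branched-chain amino acid breakdown 12 were higher (7 without any of D2 and M2) and 0 lower (median 0.81). With equal FPKM totals these counts were 4 higher and 2 lower for fatty acids and 5 higher and 0 lower for branched-chain amino acids. Ucp3, the mitochondrial uncoupling protein of muscle, had 22.8, 23.4, 37.3 and 29.3 FPKM in D1 to D4 and 174, 99.6, 114 and 64.1 FPKM in M1 to M4. All 4 Maturation Stage libraries were above day 7, M1 by the most (log2 fold change 1.92 ± 0.29 (SE), adjusted p = 0.00488, exact permutation p = 0.0286). Acacb, which makes the malonyl-CoA that restrains fat oxidation (4.40–12.5 and 22.1–36.8 FPKM, log2 fold change 1.62, adjusted p = 0.0095), Slc27a1, a fatty acid transporter (2.56–3.56 and 6.06–15.8 FPKM, log2 fold change 1.51, adjusted p = 0.00753), and Pnpla2, the triglyceride lipase (33.5–61.1 and 92.1–128 FPKM, log2 fold change 1.34, adjusted p = 0.00522) rose. Klf15, a glucocorticoid-responsive activator of amino acid breakdown, had 7.002, 4.91, 5.30 and 4.46 FPKM in D1 to D4 and 30.5, 18.4, 27.6 and 16.5 FPKM in M1 to M4. All values at day 14 lay above those at day 7 (log2 fold change 1.98 ± 0.22 (SE), adjusted p = 0.00178, exact permutation p = 0.0286). Aldh6a1 of valine breakdown (log2 fold change 1.32, adjusted p = 0.005), Bckdha (log2 fold change 1.09, adjusted p = 0.00474) of the branched-chain ketoacid dehydrogenase and its kinase Bckdk (log2 fold change 1.17, adjusted p = 0.00967) rose with it. Fabp3, the muscle fatty acid binding protein (adjusted p = 0.137), Acadl (adjusted p = 0.978) and Oxct1 of ketone use (adjusted p = 0.0839) did not pass. Leaving out the library in parentheses gave a call for Oxct1 (D1, 0.0293), here with the lowest adjusted p.

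Genes of protein breakdown and autophagy, known from wasting muscle, were higher in 10 and lower in 1 of 20 cases, with a median of 0.65. With equal FPKM totals 7 were higher and 3 lower at a median of 0.17. Fbxo32, or atrogin-1, a ubiquitin ligase, had 6.76, 9.09, 9.48 and 5.66 FPKM in D1 to D4 and 40.9, 34.3, 39.8 and 27.9 FPKM in M1 to M4. The groups lay far apart (log2 fold change 2.15 ± 0.20 (SE), adjusted p = 0.00124, exact permutation p = 0.0286), and the Uninjected mean was 73.0 FPKM. Trim63, or MuRF1, the other classic ligase, rose from 44.4–56.5 to 91.3–202 FPKM (log2 fold change 1.58, adjusted p = 0.00533), and Ddit4, a stress-induced inhibitor of mTORC1, from 24.1–34.2 to 98.6–166 FPKM (log2 fold change 2.25, adjusted p = 0.00124). Foxo4 (log2 fold change 1.33, adjusted p = 0.00332) and Foxo1 (log2 fold change 1.09, adjusted p = 0.0116), transcription factors of this program, were higher. Eda2r, the ectodysplasin A2 receptor, was the member that fell (4.02–7.12 and 0.984–2.41 FPKM, log2 fold change -1.69, adjusted p = 0.00516). Trim55, or MuRF2 (adjusted p = 0.128), Map1lc3a (adjusted p = 0.517) and Cavin4 (adjusted p = 0.531) did not pass.

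Among 28 transcription and clock regulators of fibers 7 were higher (3 without any of D2, M1 and M3, 4 without D4) and 0 lower (median 0.50), against 2 higher and 3 lower with equal FPKM totals. Tbx15, a factor of glycolytic fibers (27.5–61.3 and 74.3–111 FPKM, log2 fold change 1.11, adjusted p = 0.0151), Esrra, a regulator of mitochondrial genes (log2 fold change 0.97, adjusted p = 0.0149), Sox6, which represses slow fiber genes (log2 fold change 0.96, adjusted p = 0.0352), and the clock repressor Nr1d2 (log2 fold change 0.82, adjusted p = 0.0256) rose. Mef2d (adjusted p = 0.113) and Nfix (adjusted p = 0.317) did not pass. Lost with 1 library left out (libraries and highest adjusted p given) were the calls of Sox6 (any but D1 and M4, 0.0873) and Nr1d2 (D2, D4, M1 and M3, 0.0649).

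Signals that set muscle size changed in both directions. Of 24 growth factors and inhibitors 3 were higher and 8 lower (3 to 5 without any of D2, D3, D4, M1 and M2), against 1 higher and 14 lower with equal FPKM totals. The higher share of 12.50% was near the 9.72% of all genes, and the lower share was 33.33% against 12.0%. Day 7 alone carried 4 of the 24 past the filter, which favours lower calls. Mstn, or myostatin, which limits muscle growth, had 2.99, 3.38, 2.70 and 1.07 FPKM in D1 to D4 and 13.7, 8.84, 4.26 and 7.76 FPKM in M1 to M4. D4 was lowest and M1 highest (log2 fold change 1.56 ± 0.37 (SE), adjusted p = 0.0181, exact permutation p = 0.0286), and the Uninjected mean was 20.8 FPKM. Igfbp5, a binding protein of insulin-like growth factors made by fibers, rose from 53.5–64.7 to 99.6–153 FPKM (log2 fold change 1.02, adjusted p = 0.00611), and Bmp4 rose at low level (0.899–1.63 and 1.83–2.56 FPKM, log2 fold change 0.71, adjusted p = 0.0308). Igf1, a growth factor that fibers and macrophages make, fell from 2.31–9.40 to 0.761–2.19 FPKM (log2 fold change -1.55, adjusted p = 0.0196). Fstl1 (log2 fold change -1.99, adjusted p = 0.0286), Igfbp4 (log2 fold change -1.71, adjusted p = 0.0316) and Igfbp2 (log2 fold change -1.38, adjusted p = 0.0128) were lower. Igfbp6 (adjusted p = 0.825) and Vegfa (adjusted p = 0.142) did not pass. Leaving out 1 library ended the call of Bmp4 (D2, D4, M1, M2 and M3, 0.0784), Igf1 (D2, D4 and M1, 0.0546), Fstl1 (any but D1 and M3, 0.0807) and Igfbp4 (any but D1 and M3, 0.0865), with the libraries and the highest adjusted p in parentheses.

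Imprinted growth genes, expressed from 1 parental copy and switched off in most tissues after birth, fell nearly as a block, with 16 of 18 lower and 0 higher (median -1.67). Day 7 alone carried 5 of the 18 past the filter, which favours lower calls. H19, the abundant non-coding RNA of the Igf2 locus, had 1873, 1658, 1673 and 1456 FPKM in D1 to D4 and 526, 319, 635 and 554 FPKM in M1 to M4. Day 14 values were all below day 7 (log2 fold change -1.75 ± 0.24 (SE), adjusted p = 0.00355, exact permutation p = 0.0286), and the Uninjected mean was 144 FPKM. Igf2 itself went from 2.35–4.21 to 0.206–0.604 FPKM (log2 fold change -2.04, adjusted p = 0.0019) and its receptor Igf2r from 13.1–19.2 to 8.01–9.57 FPKM (log2 fold change -0.85, adjusted p = 0.00741). Mest, a membrane hydrolase, stood at 13.7, 74.1, 24.6 and 67.5 FPKM in D1 to D4 and 1.47, 1.47, 3.50 and 2.69 FPKM in M1 to M4. D1 and D3 were the lower libraries at day 7 and still above day 14 (log2 fold change -3.79 ± 0.52 (SE), adjusted p = 0.00332, exact permutation p = 0.0286). Of the Dlk1-Dio3 domain, Meg3 (6.15–41.5 and 0.988–2.73 FPKM, log2 fold change -3.05, adjusted p = 0.00582) and Rian (4.26–17.1 and 0.815–1.99 FPKM, log2 fold change -2.77, adjusted p = 0.0041) fell. So did Dlk1, a Notch-like inhibitor of fat cell formation, with 1.79, 31.4, 24.2 and 33.3 FPKM in D1 to D4 and 0.717, 0.128, 2.10 and 0.278 FPKM in M1 to M4, where M3 lay above D1 (log2 fold change -3.81 ± 0.83 (SE), adjusted p = 0.014, exact permutation p = 0.0571). Plagl1, a zinc finger factor, was lower (log2 fold change -3.15, adjusted p = 0.00836). Cdkn1c, the cell cycle inhibitor p57, did not pass (21.2–152 and 17.1–35.2 FPKM, adjusted p = 0.091), nor did Slc38a4 (adjusted p = 0.238). Without the library named, Cdkn1c (D1, 0.00403) passed, at the lowest adjusted p given beside it.

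The X-linked Maged genes, of the MAGE family, and the genes of the small Bex and Tceal proteins were lower in 9 of 10 cases (median -1.72). Tceal7 had 208, 169.9, 234 and 159 FPKM in D1 to D4 and 15.2, 10.7, 20.2 and 12.3 FPKM in M1 to M4. It had the lowest p-value of all genes tested (log2 fold change -3.70 ± 0.22 (SE), adjusted p = 0.000273, exact permutation p = 0.0286), with an Uninjected mean of 7.35 FPKM. Bex1 fell from 32.2–54.3 to 3.66–6.80 FPKM (log2 fold change -2.82, adjusted p = 0.000867) and Maged2 from 71.6–117 to 4.25–18.4 FPKM (log2 fold change -2.98, adjusted p = 0.0036). Tubulin, keratin and thymosin genes of new fibers and dividing cells fell in 22 of 24 cases (median -1.67). Krt18, a keratin, measured 25.8, 20.7, 17.9 and 24.0 FPKM in D1 to D4 and 3.23, 0.504, 3.47 and 2.05 FPKM in M1 to M4. The groups did not overlap (log2 fold change -3.17 ± 0.39 (SE), adjusted p = 0.00226, exact permutation p = 0.0286), and its mean was 1.25 FPKM at day 4 and 0.119 FPKM in Uninjected mice. Krt8, its partner (log2 fold change -2.84, adjusted p = 0.00522), Marcksl1, an actin-bundling protein (7.14–24.1 and 0–1.43 FPKM, log2 fold change -3.66, adjusted p = 0.00291), Tubb6, a β-tubulin (34.3–94.2 and 9.21–12.8 FPKM, log2 fold change -2.19, adjusted p = 0.00332), Tmsb10, which binds actin monomers (log2 fold change -2.49, adjusted p = 0.00651), and Tubb2b (log2 fold change -2.76, adjusted p = 0.0221) fell, as did Nes, or nestin (28.0–41.9 and 11.3–11.9 FPKM, log2 fold change -1.57, adjusted p = 0.00124). Tubulins, actins and thymosins have close copies between which reads may be split. S100a6 (adjusted p = 0.08) and Tubb2a (adjusted p = 0.0964) did not pass. The call of Tubb2b (D2 and M2, 0.0609) ended without the libraries in parentheses, which also give the highest adjusted p. S100a6 (D1, 0.0377) and Tubb2a (D1, 0.0127) passed once the library named was left out, with the lowest adjusted p beside it.

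Mitotic genes were close to 0 at day 14. Of 28 tested mitotic genes 23 were lower and 0 higher, with a median of -1.42. Of these genes 25 reached the filter through day 7 alone, which favours lower calls. With at least 1 FPKM in at least 4 libraries 13 of 14 were lower. The 4 libraries of day 7 can meet that filter alone too, so it does not remove this tilt. Ccnb2, a mitotic cyclin, had 3.52, 5.45, 3.18 and 9.77 FPKM in D1 to D4 and 0, 0, 0 and 0.385 FPKM in M1 to M4. It was listed at 0 in M1 to M3 (log2 fold change -3.25 ± 0.35 (SE), adjusted p = 0.00143, exact permutation p = 0.0286). Mki67, the proliferation marker Ki-67, measured 1.00, 2.51, 2.06 and 3.47 FPKM in D1 to D4 and 0.0576, 0.144, 0.229 and 0.332 FPKM in M1 to M4. Every day 14 value was below 0.5 FPKM (log2 fold change -1.93 ± 0.30 (SE), adjusted p = 0.00516, exact permutation p = 0.0286), and Uninjected libraries listed it at 0. Cks2, a cyclin kinase subunit (log2 fold change -2.40, adjusted p = 0.00647), Aurkb, a spindle checkpoint kinase (log2 fold change -1.95, adjusted p = 0.00454), and Cdk1, the central mitotic kinase (log2 fold change -1.92, adjusted p = 0.00319), fell too. Aurka (adjusted p = 0.268), Plk1 (adjusted p = 0.138) and Cdca3 (adjusted p = 0.0845) did not pass. Summed over the list, levels were 37.1, 61.3, 43.2 and 90.0 FPKM in D1 to D4 and 11.2, 9.05, 13.1 and 11.4 FPKM in M1 to M4. No Maturation Stage library came near the Differentiation Stage. Leaving out the library in parentheses gave a call for Plk1 (D1, 0.00554) and Cdca3 (D1, 0.00764), here with the lowest adjusted p.

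Replication and G1 genes follow. Of 25 replication genes 8 were lower (3 to 5 without any of D2, D4, M1, M2 and M4) and 1 higher (0 without any of D2, D3, D4, M1, M2 and M4). Through day 7 alone 7 of the 25 reached the filter, and through day 14 alone 1. Pcna, the sliding clamp, had 8.42, 7.52, 9.13 and 12.1 FPKM in D1 to D4 and 3.38, 4.83, 3.52 and 6.46 FPKM in M1 to M4. The groups did not overlap (log2 fold change -0.98 ± 0.22 (SE), adjusted p = 0.0159, exact permutation p = 0.0286). Mcm5, of the replicative helicase (log2 fold change -1.59, adjusted p = 0.00753), Rrm2, which makes deoxynucleotides (log2 fold change -1.27, adjusted p = 0.0196), and Lig1 (log2 fold change -1.32, adjusted p = 0.0227) were lower, Rpa2 was higher (log2 fold change 0.62, adjusted p = 0.0253), and Dut (adjusted p = 0.559) and Rfc4 (adjusted p = 0.831) did not pass. Of 21 G1 cyclins and inhibitors 7 were lower (3 to 4 without any of D2, D3, D4, M1, M2, M3 and M4, 13 without D1) and 0 higher. Of these 21 genes 3 reached the filter through day 7 alone and 1 through day 14 alone. E2f1, the factor that opens S phase (log2 fold change -1.63, adjusted p = 0.00564), Trp53 (log2 fold change -1.05, adjusted p = 0.00423) and Ccnd1, cyclin D1 (log2 fold change -1.40, adjusted p = 0.0203), fell, and Cdkn1a, the inhibitor p21, did not pass (16.1–38.6 and 16.1–22.9 FPKM, adjusted p = 0.277). Calls that ended without 1 library were those of Rrm2 (D2, D4, M1 and M2, 0.0598), Lig1 (D2, D4, M1 and M4, 0.0704), Rpa2 (any but D1 and M3, 0.0757) and Ccnd1 (D2, D4 and M3, 0.06), with those libraries and the highest adjusted p in parentheses.

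Interferon-stimulated genes were among the groups with the highest share of falls, at 23 of 24 lower and 0 higher, with a median of -2.15. Of these genes 8 reached the filter through day 7 alone, a condition that favours falls. With at least 1 FPKM in at least 4 libraries, which day 7 alone can also supply, 22 of 22 were lower. These genes answer interferon through STAT and IRF factors, which bind a repeated GAAA element. Irf7, a factor that amplifies the response, had 12.8, 17.8, 26.3 and 10.7 FPKM in D1 to D4 and 0.307, 0.959, 2.54 and 1.14 FPKM in M1 to M4. Day 14 values were all below 3 FPKM and day 7 values all above 10 (log2 fold change -3.4005 ± 0.40 (SE), adjusted p = 0.0019, exact permutation p = 0.0286). Isg15, a ubiquitin-like modifier, measured 12.5, 26.2, 42.3 and 29.5 FPKM in D1 to D4 and 3.30, 1.03, 3.82 and 3.35 FPKM in M1 to M4. D1 was lowest at day 7 and still more than 3 times M3, the highest at day 14 (log2 fold change -3.04 ± 0.41 (SE), adjusted p = 0.00332, exact permutation p = 0.0286). Ifit3, which restrains foreign RNA, went from 8.11–24.8 to 0.332–3.08 FPKM (log2 fold change -3.31, adjusted p = 0.0053), Oas1a, an oligoadenylate synthase, from 3.22–8.03 to 0–0.417 FPKM (log2 fold change -3.14, adjusted p = 0.00131), and Ifi27l2a from 21.8–47.0 to 1.56–5.80 FPKM (log2 fold change -3.04, adjusted p = 0.00168). Mx2 did not pass (adjusted p = 0.0894). Immunoproteasome subunits, which interferon induces, fell as well: Psmb8 (3.39–7.94 and 0.857–2.09 FPKM, log2 fold change -1.73, adjusted p = 0.00595), Psmb9 (2.84–3.99 and 0.396–1.68 FPKM, log2 fold change -1.28, adjusted p = 0.0134) and Psmb10 (14.1–18.7 and 6.80–9.79 FPKM, log2 fold change -0.97, adjusted p = 0.00595). Summed over the list, values were 346, 513, 649 and 450.1 FPKM in D1 to D4 and 87.5, 85.8, 143 and 139 FPKM in M1 to M4. D1 was the lowest of day 7 and more than 2 times the highest of day 14.

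Promoters of interferon genes are shown for the repeated element. GAAANNGAAA on either strand was found in 3.44% (1131 of 32851) of all RefSeq windows of 300 bases (250 before to 50 after the gene start, GRCm38.p6). It was found in 10 of the 16 tested interferon genes with a window: Bst2, Gbp2, Gbp3, Ifit1, Ifit3, Ifitm3, Isg15, Oas1a, Rsad2 and Stat2. Here too windows stand against genes, and some genes, such as Gbp3, had 2 windows. Printed here, with matches in capitals as they read on the gene's strand (TTTCNNTTTC where the match is on the other strand), are Isg15 (chr4:156200769-156201068, minus strand), Ifit3 (chr19:34583279-34583578, plus strand), Ifit1 (chr19:34640639-34640938, plus strand) and Oas1a (chr5:120907476-120907775, minus strand).
Isg15: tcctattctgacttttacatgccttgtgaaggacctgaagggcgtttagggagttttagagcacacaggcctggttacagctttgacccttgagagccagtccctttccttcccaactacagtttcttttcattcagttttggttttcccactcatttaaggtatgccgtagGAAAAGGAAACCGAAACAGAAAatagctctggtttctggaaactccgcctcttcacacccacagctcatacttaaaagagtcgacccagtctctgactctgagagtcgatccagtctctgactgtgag
Ifit3: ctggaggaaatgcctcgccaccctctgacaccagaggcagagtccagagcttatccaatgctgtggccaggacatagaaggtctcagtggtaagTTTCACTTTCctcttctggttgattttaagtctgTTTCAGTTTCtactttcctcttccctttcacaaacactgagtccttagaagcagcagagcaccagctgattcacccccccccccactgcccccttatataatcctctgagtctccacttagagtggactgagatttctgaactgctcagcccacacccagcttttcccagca
Ifit1: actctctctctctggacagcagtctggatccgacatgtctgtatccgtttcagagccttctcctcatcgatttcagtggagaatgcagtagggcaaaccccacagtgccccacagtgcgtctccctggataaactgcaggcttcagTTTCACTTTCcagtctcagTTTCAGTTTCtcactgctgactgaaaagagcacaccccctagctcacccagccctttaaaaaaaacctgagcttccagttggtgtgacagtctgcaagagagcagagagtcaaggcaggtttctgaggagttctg
Oas1a: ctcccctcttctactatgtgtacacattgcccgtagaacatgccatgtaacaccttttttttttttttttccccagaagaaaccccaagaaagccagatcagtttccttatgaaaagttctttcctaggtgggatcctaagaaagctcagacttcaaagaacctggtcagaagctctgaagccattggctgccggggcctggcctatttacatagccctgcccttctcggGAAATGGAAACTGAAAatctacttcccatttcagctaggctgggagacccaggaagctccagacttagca
Isg15 held 3 overlapping matches, and the others held 2 each. The letters describe the windows and say nothing of which factor was bound at day 7 or day 14.

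Macrophage and leukocyte genes fell in 24 of 29 cases and rose in 0, with a median of -2.53. Of these genes 12 reached the filter through day 7 alone, where a fall is the likelier call. With at least 1 FPKM in at least 4 libraries, a filter still open to day 7 alone, 19 of 21 were lower. For its protein and DNA measurements the study depleted fibers of CD45+ leukocytes with magnetic beads. Whether the RNA was taken after that step was not stated in the sources used here. C1qa, a complement subunit made by tissue macrophages, had 13.6, 125, 62.2 and 158 FPKM in D1 to D4 and 2.79, 0.696, 9.60 and 5.66 FPKM in M1 to M4. D1 was far below D2 to D4 and just above M3 (log2 fold change -4.03 ± 0.83 (SE), adjusted p = 0.0114, exact permutation p = 0.0286). Lyz2, lysozyme, stood at 35.8, 319.8, 112 and 529 FPKM in D1 to D4 and 12.8, 11.01, 26.2 and 22.4 FPKM in M1 to M4. Again D1 lay close to the Maturation Stage (log2 fold change -3.21 ± 0.73 (SE), adjusted p = 0.0162, exact permutation p = 0.0286). Cd68, a lysosomal protein of macrophages (3.22–42.6 and 1.15–1.53 FPKM, log2 fold change -2.91, adjusted p = 0.0152), Ctss, cathepsin S (8.93–156 and 1.60–6.22 FPKM, log2 fold change -3.83, adjusted p = 0.0122), Fcer1g, an Fc receptor chain (log2 fold change -3.57, adjusted p = 0.0119), and Cd52 (log2 fold change -3.61, adjusted p = 0.00342) fell, as did Spi1, the myeloid factor PU.1 (3.50–9.40 and 0.285–0.860 FPKM, log2 fold change -2.55, adjusted p = 0.0019). Csf1r, the growth factor receptor of macrophages, did not pass (0.467–12.2 and 0.502–1.204 FPKM, adjusted p = 0.0893). Summed over the list, values were 116, 1014, 429 and 1404 FPKM in D1 to D4 and 36.2, 31.6, 81.3 and 58.9 FPKM in M1 to M4. D1 lay near the highest Maturation Stage library, and Uninjected libraries summed to 9.54 to 22.9 FPKM. Without the library named, Csf1r (D1, 0.0017) passed, at the lowest adjusted p given beside it.

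**Figure D5:**
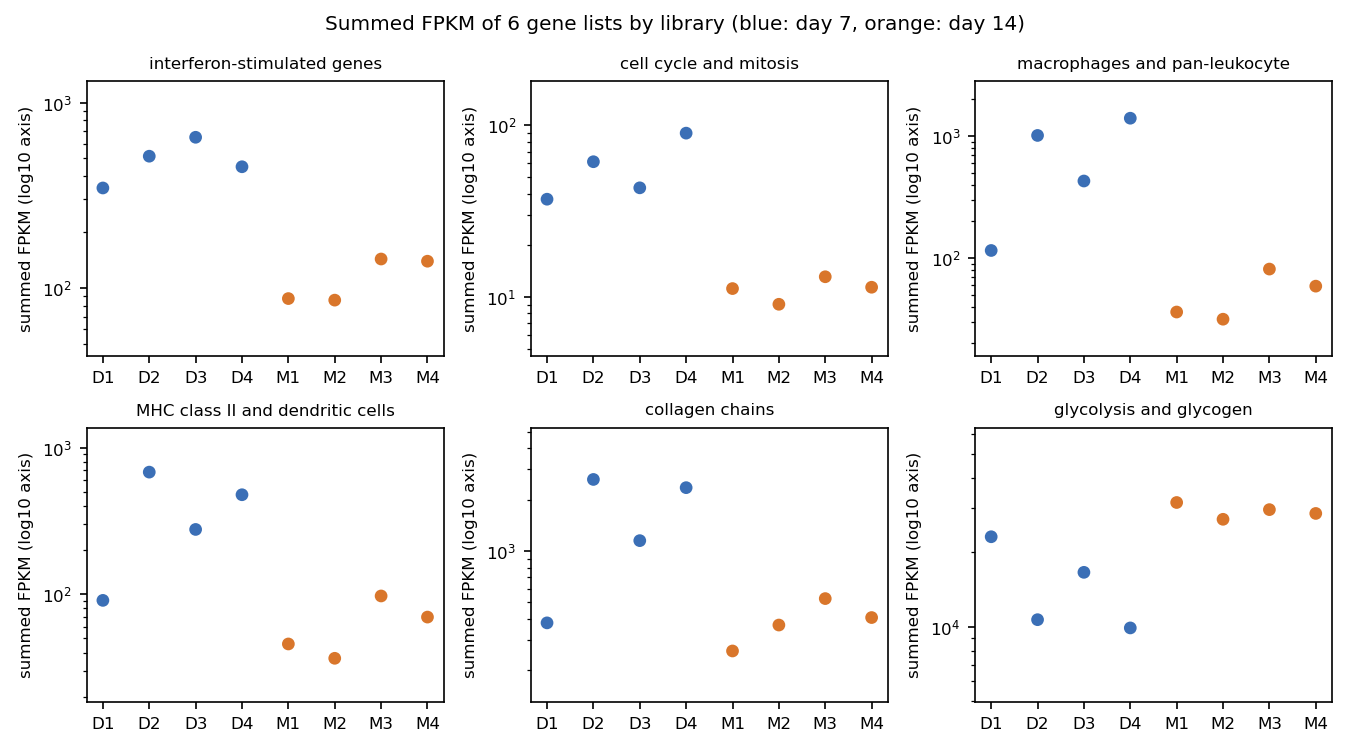
Summed FPKM of 6 gene lists in each library at day 7 (D1 to D4, blue) and day 14 (M1 to M4, orange), on log10 axes, 1 panel per list. D1 lies near the day 14 libraries for macrophage, MHC class II, collagen and glycolysis genes and with D2 to D4 for interferon and cell cycle genes.

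Genes of lipid-laden, lysosome-rich repair macrophages were lower in 13 (5 to 8 without any of D2, D4 and M2) and higher in 1 of 28 cases. Lgals3, or galectin-3, fell from 10.2–79.6 to 0.390–7.23 FPKM (log2 fold change -3.21, adjusted p = 0.0166), Apoe, apolipoprotein E, from 64.0–818 to 27.4–63.0 FPKM (log2 fold change -2.95, adjusted p = 0.0176) and Fabp5 from 7.75–21.8 to 0.650–5.17 FPKM (log2 fold change -2.16, adjusted p = 0.0138). Spp1, or osteopontin (0.818–70.3 and 0.352–1.91 FPKM, log2 fold change -3.24, adjusted p = 0.0492), and Grn, progranulin (log2 fold change -1.96, adjusted p = 0.0156), were lower. The general lysosomal genes Psap (adjusted p = 0.781), Ctsd (adjusted p = 0.662) and Lamp1 (adjusted p = 0.166) did not pass, and the 1 member that rose was Lpl, lipoprotein lipase (log2 fold change 0.93, adjusted p = 0.0481). Of 11 MHC class II and dendritic cell genes 8 were lower (2 to 4 without any of D2, D4, M1 and M2) and 0 higher. Day 7 alone carried 5 of the 11 past the filter, which favours lower calls. Cd74, the class II invariant chain, had 42.5, 361, 139 and 244 FPKM in D1 to D4 and 21.4, 18.6, 46.9 and 34.8 FPKM in M1 to M4. M3 was above D1 (log2 fold change -2.39 ± 0.60 (SE), adjusted p = 0.0223, exact permutation p = 0.0571). H2-Ab1 (log2 fold change -2.41, adjusted p = 0.0245), H2-DMb1 (log2 fold change -2.52, adjusted p = 0.0138) and Ccr7, the homing receptor of migrating dendritic cells (1.70–6.76 and 0–0.388 FPKM, log2 fold change -2.50, adjusted p = 0.005), fell. With 1 library left out, the call was lost for Apoe (D2, 0.0527), Spp1 (any but D1, 0.126), Lpl (any but D1 and M1, 0.12), Cd74 (D2, D4, M1 and M2, 0.0624) and H2-Ab1 (D2, D3, D4, M1 and M2, 0.0682), libraries and highest adjusted p in parentheses.

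Chemokines fell in 10 of 18 cases, with a median of -1.36, and 8 of the 18 reached the filter through day 7 alone. Ccl8 had 5.27, 19.7, 15.7 and 4.06 FPKM in D1 to D4 and 0, 0, 0.751 and 0 FPKM in M1 to M4. It was listed at 0 in 3 of 4 Maturation Stage libraries (log2 fold change -3.94 ± 0.52 (SE), adjusted p = 0.00291, exact permutation p = 0.0286). The T cell attractants Cxcl9 (2.62–12.3 and 0.384–0.961 FPKM, log2 fold change -2.56, adjusted p = 0.00555) and Cxcl10 (1.80–7.10 and 0–0.174 FPKM, log2 fold change -2.73, adjusted p = 0.00337), which interferon induces, and Ccl5 (log2 fold change -2.76, adjusted p = 0.0146) and Cxcl16 (log2 fold change -2.57, adjusted p = 0.00657) fell. Cxcl12, the niche chemokine, did not pass (adjusted p = 0.264), nor did Cxcl14 (adjusted p = 0.568). Of 17 complement genes 7 were lower (4 without D2) and 0 higher. Day 7 alone carried 4 of the 17 past the filter. C1qb (8.05–150.4 and 2.00–10.2 FPKM, log2 fold change -3.35, adjusted p = 0.0224), C1qc (log2 fold change -3.34, adjusted p = 0.0172), and the receptors C3ar1 (log2 fold change -2.27, adjusted p = 0.0128) and C5ar1 (log2 fold change -1.96, adjusted p = 0.0116) fell. Lymphocyte genes were close to the filter: of 6 tested, Cd4 was lower (0.167–1.81 and 0–0.0974 FPKM, log2 fold change -1.1998, adjusted p = 0.0477), and Ighm, the immunoglobulin heavy chain of naive B cells, did not pass (4.62–8.93 and 5.84–30.0 FPKM, adjusted p = 0.136). Of the 6 lymphocyte genes 3 reached the filter through day 7 alone. Lost with 1 library left out (libraries and highest adjusted p given) were the calls of C1qb (D2, D4, M1 and M2, 0.0648), C1qc (D2, 0.0515) and Cd4 (any but D1, 0.0909).

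Matrix genes were lower in part and by uneven amounts. Of 23 collagen chains 9 were lower (2 to 4 without any of D2, D3, D4, M1, M2 and M4, 17 without D1) and 1 higher, with a median of -1.54. Day 7 alone carried 3 of the 23 past the filter, which favours lower calls. Col15a1, a basement membrane collagen, had 29.3, 44.1, 41.2 and 34.5 FPKM in D1 to D4 and 8.12, 10.3, 15.7 and 17.5 FPKM in M1 to M4. D1 was the lowest of day 7 and above all of day 14 (log2 fold change -1.54 ± 0.25 (SE), adjusted p = 0.00557, exact permutation p = 0.0286). Col1a1, the main fibrillar chain, measured 46.3, 1044, 336 and 914 FPKM in D1 to D4 and 45.7, 112, 135 and 102 FPKM in M1 to M4. D1 was as low as M1, and the gene did not pass (log2 fold change -1.93, adjusted p = 0.142). Col3a1, which marks early scar, was called lower (46.1–422 and 33.8–73.5 FPKM, log2 fold change -2.23, adjusted p = 0.0355), with M3 above D1. Col18a1 (log2 fold change -2.24, adjusted p = 0.0125), Col5a1 (log2 fold change -2.40, adjusted p = 0.042), Col6a3 (log2 fold change -2.19, adjusted p = 0.0365) and Col5a2 (log2 fold change -2.15, adjusted p = 0.0479) fell, while Sparc, a collagen-binding matrix protein, did not pass (172–563 and 125–204 FPKM, adjusted p = 0.0718). Col22a1, a collagen of the myotendinous junction, rose from 0.496–4.44 to 4.96–7.92 FPKM (log2 fold change 1.88, adjusted p = 0.0182). Collagen chains summed to 379.8, 2623, 1150.2 and 2348 FPKM in D1 to D4 and 260.1, 369, 527 and 408 FPKM in M1 to M4. D1 was below M3 and M4, and D2, the highest, was also the highest library for the summed tendon list given below, whose part in the matrix results was not tested. Leaving out 1 library ended the call of Col3a1 (any but D1 and M3, 0.0956), Col5a1 (any but D1, 0.112), Col6a3 (any but D1 and M3, 0.0979) and Col5a2 (any but D1, 0.124), with the libraries and the highest adjusted p in parentheses. Col1a1 (D1, 0.00313) and Sparc (D1, 0.00602) passed once the library named was left out, with the lowest adjusted p beside it.

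Of 24 genes of collagen folding and crosslinking 6 were lower (2 to 3 without any of D2, D3, D4, M1, M2 and M4, 21 without D1) and 0 higher. Serpinh1, the collagen chaperone HSP47, fell from 92.1–318 to 42.9–78.6 FPKM (log2 fold change -1.64, adjusted p = 0.0146), Loxl1, a crosslinking oxidase, from 4.70–64.4 to 2.64–6.61 FPKM with M3 and M4 above D1 (log2 fold change -2.25, adjusted p = 0.041) and Crtap, of the prolyl hydroxylation complex, from 15.6–38.4 to 5.31–11.3 FPKM (log2 fold change -1.52, adjusted p = 0.0121). P4hb (adjusted p = 0.0636) and Fkbp9 (adjusted p = 0.234) did not pass. Of 39 matrix glycoproteins, proteoglycans and laminins 17 were lower (6 to 10 without any of D2, D3, D4, M1, M2, M3 and M4, 31 without D1) and 0 higher (median -1.38). Day 7 alone carried 4 of the 39 past the filter, which favours lower calls. Cilp, a matrix protein that binds TGF-β1, had 69.7, 141, 61.2 and 81.8 FPKM in D1 to D4 and 14.2, 8.69, 27.8 and 13.9 FPKM in M1 to M4. All 4 day 7 libraries, D1 included, were above day 14 (log2 fold change -2.46 ± 0.36 (SE), adjusted p = 0.0041, exact permutation p = 0.0286). Postn, or periostin, ranged from 3.41–241 FPKM at day 7 to 1.75–8.73 FPKM at day 14, with M3 and M4 above D1 (log2 fold change -3.62, adjusted p = 0.047). Mfap2 (log2 fold change -2.45, adjusted p = 0.0215), Bgn, or biglycan (log2 fold change -2.09, adjusted p = 0.048), and the laminin chain Lamc1 (log2 fold change -0.84, adjusted p = 0.00845) were lower. Dcn, decorin, did not pass (12.2–60.5 and 22.7–36.9 FPKM, adjusted p = 0.906). The call of Loxl1 (any but D1, 0.109), Postn (any but D1, 0.123), Mfap2 (D2, D4, M1 and M2, 0.063) and Bgn (any but D1, 0.126) ended without the libraries in parentheses, which also give the highest adjusted p. Leaving out the library in parentheses gave a call for P4hb (D1, 0.00997) and Fkbp9 (D1, 0.0333), here with the lowest adjusted p.

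Of 20 matrix proteases and inhibitors 8 were lower (1 to 5 without any of D2, D3, D4, M1, M2, M3 and M4, 14 without D1) and 2 higher. Day 7 alone carried 6 of the 20 past the filter, which favours lower calls. The inhibitors split. Timp1, an inhibitor that injury induces, had 9.11, 19.4, 16.8 and 31.8 FPKM in D1 to D4 and 1.96, 0.816, 3.46 and 5.08 FPKM in M1 to M4. No Maturation Stage library reached the Differentiation Stage (log2 fold change -2.64 ± 0.47 (SE), adjusted p = 0.00759, exact permutation p = 0.0286). Timp4, an inhibitor of adult muscle, heart and fat, went the other way, with 2.97, 0.794, 2.36 and 1.83 FPKM in D1 to D4 and 8.06, 14.5, 9.44 and 12.7 FPKM in M1 to M4. All day 14 values were above 8 FPKM and all day 7 values below 3 (log2 fold change 2.28 ± 0.31 (SE), adjusted p = 0.00319, exact permutation p = 0.0286). Timp3 rose (3.52–5.55 and 7.90–8.95 FPKM, log2 fold change 0.89, adjusted p = 0.00889), and Timp2 fell (38.4–104 and 29.1–32.2 FPKM, log2 fold change -0.98, adjusted p = 0.0386). Of the proteases, Mmp14, a membrane-bound collagenase, fell from 7.24–61.0 to 2.31–7.15 FPKM (log2 fold change -2.40, adjusted p = 0.0255), and Adam12 (log2 fold change -2.14, adjusted p = 0.0233), Adam8 (log2 fold change -1.80, adjusted p = 0.0324) and Adam19 (log2 fold change -1.78, adjusted p = 0.0372) were lower. Mmp2, gelatinase A, did not pass (2.60–85.7 and 4.30–12.0 FPKM, adjusted p = 0.257). C1qtnf3, a secreted C1q-related protein and the fourth largest fall among abundant genes, had 2.90, 93.7, 10.1 and 72.0 FPKM in D1 to D4 and 0.227, 0.567, 0.901 and 0.691 FPKM in M1 to M4. D1 was far below D2 and D4 (log2 fold change -4.38 ± 0.93 (SE), adjusted p = 0.0129, exact permutation p = 0.0286). Calls that ended without 1 library were those of Timp2 (any but D1 and D3, 0.0986), Mmp14 (D2, D4, M1, M2 and M4, 0.0692), Adam12 (D2, D3, D4, M1 and M2, 0.0577), Adam8 (D2, D4, M1, M2 and M4, 0.0864) and Adam19 (any but D1, 0.101), with those libraries and the highest adjusted p in parentheses. Without the library named, Mmp2 (D1, 0.00521) passed, at the lowest adjusted p given beside it.

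Genes of other stromal cells follow. Of 18 genes of fibro-adipogenic progenitors, the mesenchymal cells between fibers, 5 were lower (3 without D2, 9 without D1) and 0 higher, with Thy1 (5.40–22.9 and 2.42–4.06 FPKM, log2 fold change -1.75, adjusted p = 0.0131), Lum (log2 fold change -2.02, adjusted p = 0.0232) and Cd34 (15.2–18.6 and 6.66–11.3 FPKM, log2 fold change -0.84, adjusted p = 0.011) falling and Pdgfra not passing (0.336–3.93 and 0.723–1.45 FPKM, adjusted p = 0.334). Of 23 endothelial genes 5 were lower (2 without M1, 3 without any of D2, D3, D4, M2 and M3) and 1 higher, and with equal FPKM totals 14 were lower. Aplnr, the apelin receptor of sprouting vessels, had 31.2, 24.0, 33.1 and 18.8 FPKM in D1 to D4 and 5.95, 6.66, 11.8 and 12.4 FPKM in M1 to M4. It fell without overlap (log2 fold change -1.52 ± 0.28 (SE), adjusted p = 0.00774, exact permutation p = 0.0286), and Plvap, a diaphragm protein of leaky vessels, fell from 31.0–45.1 to 11.1–17.9 FPKM (log2 fold change -1.23, adjusted p = 0.00494). Aqp1, the water channel of quiescent capillaries, rose from 69.9–119 to 169–235 FPKM (log2 fold change 1.16, adjusted p = 0.0103). Cdh5, the endothelial cadherin, did not pass (50.3–72.0 and 32.4–52.3 FPKM, adjusted p = 0.0679), nor did Pecam1 (adjusted p = 0.164). Of 17 pericyte and smooth muscle genes 3 were lower (0 to 1 without any of D2, D4 and M2, 6 without D1) (8 with equal FPKM totals), namely Cald1 (log2 fold change -1.01, adjusted p = 0.0181), Mcam (log2 fold change -0.86, adjusted p = 0.0206) and Cspg4 (log2 fold change -0.80, adjusted p = 0.0224), and Acta2, smooth muscle actin, did not pass (adjusted p = 0.051). This lower share of 17.65% was not far from the 12.0% of all genes, and 2 of the 17 reached the filter through day 7 alone. With 1 library left out, the call was lost for Lum (D2, D3, D4, M1 and M2, 0.0645), Cald1 (D2, 0.0562), Mcam (D2, D4, M1 and M2, 0.0605) and Cspg4 (D2, D4, M2 and M4, 0.0615), libraries and highest adjusted p in parentheses. Pdgfra (D1, 0.00745) and Acta2 (D1, D3 and M3, 0.0325) passed once the library named was left out, with the lowest adjusted p beside it.

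Tendon genes stood highest in D2. Tnmd, or tenomodulin, stood at 1.49, 117, 6.30 and 20.6 FPKM in D1 to D4 and 6.42, 12.3, 21.3 and 15.4 FPKM in M1 to M4 and did not pass (log2 fold change -0.03, adjusted p = 0.986), and of 9 tested tendon genes only Egr1, also an immediate early gene, was called. Without D2, 3 tendon genes were called higher and the list median went from 0.0022 to 0.79, while with equal FPKM totals it was -0.51, or -0.40 without mitochondrially encoded genes. Summed over the list, values were 40.2, 563, 113 and 186 FPKM in D1 to D4 and 105, 156, 209 and 184 FPKM in M1 to M4. Of 10 genes of Schwann cells only Ncam1 was called. The median of the adipocyte list was 0.20, which became -0.22 with equal FPKM totals and -0.13 without mitochondrially encoded genes. In this list the genes that rose were ones that muscle also expresses: Car3, carbonic anhydrase 3, with 196, 150.0, 169 and 188 FPKM in D1 to D4 and 563, 1139.7, 699 and 1109 FPKM in M1 to M4, which separated the groups (log2 fold change 2.26 ± 0.26 (SE), adjusted p = 0.0018, exact permutation p = 0.0286), Plin4, a lipid droplet coat protein of muscle and fat (6.69–16.2 and 33.1–111 FPKM, log2 fold change 2.35, adjusted p = 0.00583), and Lpl. Of 5 red blood cell genes Hbb-bs (8.65–12.3 and 22.6–63.2 FPKM, log2 fold change 1.59, adjusted p = 0.00967) and Bpgm (log2 fold change 1.48, adjusted p = 0.0317) rose and Hba-a1, an α-globin with a near-identical copy, did not pass (6.05–16.9 and 15.7–50.8 FPKM, adjusted p = 0.0859). Globin copies share reads. Lost with 1 library left out (libraries and highest adjusted p given) were the calls of Bpgm (D2, M1, M2, M3 and M4, 0.0833).

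Genes of protein synthesis depended on the scaling. Of 57 cytosolic ribosomal protein genes 8 were lower (2 to 5 without any of D2, D3, D4, M1, M2, M3 and M4) and 1 higher (0 without D2), with a median of -0.42. The lower share of 14.04% was near the 12.0% of all genes. With equal FPKM totals 49 of 57 were lower, with equal totals without mitochondrially encoded genes 48 and with quantile normalization 42. The one that rose was Rpl3l, the muscle paralog of Rpl3, with 274, 114, 225 and 109 FPKM in D1 to D4 and 392, 389, 428 and 407 FPKM in M1 to M4. Day 14 values were all above day 7 (log2 fold change 1.27 ± 0.30 (SE), adjusted p = 0.0187, exact permutation p = 0.0286). Rpl3 itself had 18.9, 55.9, 32.4 and 62.5 FPKM in D1 to D4 and 8.58, 9.13, 12.2 and 14.3 FPKM in M1 to M4. It fell (log2 fold change -1.78 ± 0.36 (SE), adjusted p = 0.0107, exact permutation p = 0.0286), and Rpl3l was the more abundant of the pair in FPKM in every library. Rps19 (log2 fold change -0.81, adjusted p = 0.017) and Rpl41 (log2 fold change -1.26, adjusted p = 0.0218) were lower, although ribosomal protein genes have many processed copies. Of 26 ribosome biogenesis genes 4 were lower (0 to 2 without any of D2, D3, D4, M1, M2, M3 and M4), among them Myc (2.48–6.42 and 1.07–2.40 FPKM, log2 fold change -0.95, adjusted p = 0.043) and Npm1, nucleophosmin (log2 fold change -0.57, adjusted p = 0.0449). This lower share of 15.38% was also near the 12.0% of all genes. Of 23 endoplasmic reticulum chaperone genes 8 were lower (3 to 5 without any of D2, M1, M2 and M4) and 1 higher (0 without any of D2 and M1, 2 without any of D1 and M2), against 16 lower with equal FPKM totals: Pdia4 (log2 fold change -1.47, adjusted p = 0.00858), Edem1 (log2 fold change -1.39, adjusted p = 0.00802) and Pdia3 (log2 fold change -1.37, adjusted p = 0.0201) fell, Herpud1 rose (log2 fold change 0.66, adjusted p = 0.0182), and Hspa5, the chaperone BiP, did not pass (37.3–58.8 and 35.1–47.6 FPKM, adjusted p = 0.332). Leaving out 1 library ended the call of Rpl3l (D2, 0.0512), Rpl41 (D2 and M3, 0.053), Myc (any but D1 and M3, 0.1), Npm1 (any but D1 and M3, 0.106), Pdia3 (D2, M1, M2 and M4, 0.0603) and Herpud1 (D2 and M1, 0.0532), with the libraries and the highest adjusted p in parentheses.

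The small heat shock proteins Hspb1 and Hspb7 fell. Hspb1, or HSP27, had 605, 298, 537 and 575 FPKM in D1 to D4 and 179, 169, 233 and 199 FPKM in M1 to M4. All Maturation Stage values were below the Differentiation Stage (log2 fold change -1.33 ± 0.25 (SE), adjusted p = 0.00898, exact permutation p = 0.0286), and Hspb7 fell from 216–397 to 70.5–142 FPKM (log2 fold change -1.37, adjusted p = 0.012). In all 5 of 20 heat shock genes were lower (2 without M1, 3 without any of D2, D3, M2 and M3) and 1 higher (0 without any of D2, D4, M1, M2 and M3, 3 without D1), and Cryab, αB-crystallin (adjusted p = 0.948) and Hspb6 (adjusted p = 0.314) did not pass. Of 36 proteasome genes 4 were higher (0 without any of D2, D4, M1, M2, M3 and M4, 7 without D1), Psmb7 among them (log2 fold change 0.64, adjusted p = 0.0316), and the 3 lower were the immunoproteasome subunits. The higher share of 11.11% was near the 9.72% of all genes, and the lower share was 8.33% against 12.0%. The proteasome median of 0.19 became -0.31 with equal FPKM totals, and with quantile normalization it lay 0.07 below the median of all genes. Immediate early genes, which respond within minutes to stimulation and to dissection, went both ways, with 3 higher and 3 lower (5 without D2) of 19. Each share was 15.79%, not far from the 9.72% higher and 12.0% lower of all genes. Day 7 alone carried 2 of the 19 past the filter. Junb (13.2–17.5 and 4.50–6.40 FPKM, log2 fold change -1.38, adjusted p = 0.00168), Egr1 (4.06–7.32 and 1.16–2.93 FPKM, log2 fold change -1.32, adjusted p = 0.00921) and Jund (log2 fold change -1.02, adjusted p = 0.0167) fell, while Nr4a1 (36.6–69.9 and 119–134 FPKM, log2 fold change 1.24, adjusted p = 0.00661), Zfp36 (log2 fold change 0.99, adjusted p = 0.00579) and Dusp1 (log2 fold change 0.95, adjusted p = 0.0155) rose, and Jun did not pass (adjusted p = 0.366). The call of Psmb7 (any but D1 and D3, 0.0871) ended without the libraries in parentheses, which also give the highest adjusted p.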

How the data were processed

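The TA libraries were made by the authors with poly(A) selection and a NEBNext Ultra kit, which does not mark strand, and were sequenced as paired ends, so that a gene and an antisense partner cannot be told apart. The deposited values are FPKM, made by the authors against mm10 per the submitters' processing notes. Aligner, counter and annotation were not given in the sources used here. Deposited fold changes and p-values of the authors' own comparisons were not used, and 0 columns of per-sample values were left over.

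The Differentiation and Maturation Stage tables were joined by Ensembl identifier. FPKM values come in steps of 1 fragment, from which depth was recovered with exon lengths of GENCODE M21 (52125 of 56748 identifiers matched), and 90.8 to 95.0% of values below 50 fragments were whole within 0.01. Depths cover counting error only. In all Maturation Stage libraries the fragments in genes came out above the recovered library total (5544584 against 5094463 in M4). In all Differentiation Stage libraries they came out below it (6293133 against 8755815 in D2). A count in genes cannot exceed its total, so the depths are approximate.

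Limma 3.58.1 (lmFit and eBayes with trend and robust) was fitted in R 4.3.3 with statmod 1.5.0 to log2(FPKM + 0.5), and p-values were adjusted by Benjamini-Hochberg over all 13227 genes tested. The FPKM table kept no counts, so no count test was made as the main one. The difference in mean FPKM was also tested by exact permutation (two-sided) over all divisions of the 8 libraries into 4 and 4. A gene without overlap always gets the smallest p of this test, so for genes picked without overlap it is not separate support. Each library is 1 subject per the labels. Python 3.11.15, numpy 2.4.6 and pandas 2.3.3 were used for the rest.

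Members, lists and alternatives were chosen with earlier results of these data known. Named were the 15 largest rises and the 15 largest falls among called genes whose higher group averaged 10 FPKM or more, without overlap of the libraries, genes that the study names for its transcripts, the myosin heavy chain, acetylcholine receptor and fusogen genes, and, of each of 50 lists, the 5 largest called members in each direction and up to 3 abundant members that did not pass. Myl4, Myl6b, Tnnt2, Ankrd1, Myom1, Pygm, Slc2a4, Hk2, Pfkm, Gapdh, H19, Igf2r, Tubb6, Nes, Spi1, Lamc1, Timp2 and Hspa5 were named after their values were seen. Some genes that the rule takes are not reported here. The alternatives were other pseudocounts, filters, scalings, weights, tests and sets of libraries. Voom weights on recovered fragments and leaving out the libraries with the fewest fragments (D1, D4, M1 and M2) were chosen after seeing the data.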

Additional observations from a re-analysis of the deposited data

Results flagged for a closer look

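In 23 of 370 groups of 4 libraries examined, over the genes and list sums named above, 1 library lay apart from the other 3. The measure was its distance to the nearest other library as a share of the range of the group on the scale of log2(FPKM + 0.5), and the limit was Dixon's critical value for groups of 4. Chance puts about 1 in 20 groups past this limit where values are not tied. With 3 libraries at 0 FPKM the share is 1.0 by construction, however small the value of the remaining library. The groups given below with a share of 1.0 are of this kind. Of the 23 groups 7 were in the Differentiation Stage, 3 of them with D1 apart, and 16 were in the Maturation Stage.

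At day 7, D1 was apart as the lowest for Dlk1 (share 0.884) and Myh10 (0.864) and as the highest for Smox (0.923). D2 was the highest for Ccr7 (0.83) and the lowest for Hspb1 (0.833), D3 was the lowest for Myod1 (0.899), and D3 was alone above 0 for Odf3l2 (1.0).

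At day 14, M1 was the lowest for Csrp3 (0.835), Myh2 (0.942) and Plvap (0.847). M2 was the highest for Acacb (0.967), Hbb-bs (0.883) and Scn4b (0.922) and the lowest for Isg15 (0.875). M3 was the highest for Rian (0.935) and the lowest for Acta1 (0.833), and it was the single library above 0 FPKM for Ccl8 (1.0) and Ccr7 (1.0). M4 was the lowest for Myf5 (0.834) and Pdk4 (0.836) and the single library above 0 FPKM for Ccnb2 (1.0), Cd4 (1.0) and Tnnc2 (1.0).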

How the results depend on the processing

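Against 1286 genes higher and 1587 lower, the counts were 849 and 1072 with no filter on low values, 460 and 3333 with equal FPKM totals, 614 and 2809 with equal totals of genes that are not mitochondrially encoded, 714 and 1405 in a fit of all 15 libraries and 665 and 506 with the unpaired test of the study's methods on FPKM. Leaving out 1 library gave 656 to 1838 higher and 722 to 2255 lower. In the main comparison and in all 8 comparisons with a library left out, 611 genes were called higher and 697 lower each time. The 2 settings chosen after seeing the data gave 1597 and 1904 with voom weights and 618 and 672 without D1, D4, M1 and M2. Other pseudocounts, the stricter filter, median ratio scaling, quantile normalization and array weights kept both counts within 1.5 times.

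Subject numbers gave no sign of pairing the libraries. Correlations of the deviations of same-numbered libraries were 0.069, 0.0073, 0.0051 and 0.019, and in no such pair was each library the best match of the other. A fit with the number as a replicate block gave 1054 higher and 1289 lower, with the call lost for 23 of the 256 called genes named here.

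Of these 256 genes 0 changed sign under any setting. Calls were lost for 73 of them in the fit of all 15 libraries, 49 with no filter, 22 with equal FPKM totals and 159 with the unpaired test. Some genes that did not pass changed sign. Chrne, at a log2 fold change of 0.11, gave -0.37 with equal FPKM totals, -0.27 with equal totals without mitochondrially encoded genes and -0.33 to 0.51 with 1 library left out. Tnmd, at -0.03, gave 0.030 with a pseudocount of 0.1 and -0.95 to 1.01 with 1 library left out. With 1 library left out, Myh2 ranged from -1.24 to 0.066, the latter without M1, and Myf6 from -0.42 to 0.041, the latter without M2. Shallow libraries limit genes near the filter, where 1 fragment moves the value.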
